A study of Homo sapiens with 14 samples.

Results

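Voltage-gated ion channel genes were followed through the differentiation of NT2 cells, a human embryonal carcinoma line. The members were the protein-coding genes whose symbols begin with KCN, CACNA, CACNB or CACNG, or consist of SCN, a number and the letter A or B. Epithelial sodium channel genes (SCNN) and antisense genes were left out. The rule found 133 of the 25952 genes in the deposited count table: 14 sodium, 26 calcium and 93 potassium channel genes. The name suits only some of them in the strict sense. The inward rectifiers (KCNJ), the leak channels of the KCNK family, the small calcium-activated channels (KCNN) and the accessory subunits share the gene-name stem but are not themselves gated by a voltage sensor. Of the 133 members, 124 had enough counts to be tested. The other 9 were SCN10A, CACNG2, CACNG5, KCNA10, KCNG4, KCNK4, KCNK9, KCNMB3 and KCNU1.

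Total RNA was sequenced from 14 libraries in 7 groups of 2. The starting group was NT2 cells at day 0 without treatment. The RA groups were cells after 5, 10 and 21 days in all-trans retinoic acid at a final 10 µM, which the labels describe as the route to neurons, and the BMP2 groups were cells after 5, 10 and 21 days in bone morphogenetic protein 2, described as the route to muscle. BMP2 was first tested at 30 ng/ml and later used at 40 ng/ml, and the labels give no dose for a single library. All groups share 1 cell line and a serum-containing medium. Solvent (DMSO) cultures and untreated cells kept for longer were not analysed here, so an agent and the time in culture cannot be told apart in any comparison with day 0. Nothing in the labels ties the 2 libraries of a group to separate dishes. Each p-value therefore sets a difference between group means against a spread among libraries pooled over all 7 groups, and that spread may be technical.

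Values are CPM (counts scaled to library size with a TMM factor), given for replicate 1 and then replicate 2. A difference is a log2 fold change ± SE from edgeR's quasi-likelihood test over all 14 libraries. It is said to rise or fall where the Benjamini-Hochberg adjusted p over all 19142 genes tested was under 0.05. The spread was pooled over groups, since an exact permutation test of 2 libraries against 2 cannot go below p = 0.333 (two-sided). A call is said to hold where it also passed in each of 14 further fits that left out 1 library at a time. Where it did not hold, up to 5 libraries whose absence ended it are named with the log2 value found without them. Where more did, the number of such fits and the range of their log2 values are given.

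Depth ran from 45773278 to 75754396 counts per library. Replicates of 6 groups correlated with r between 0.958 and 0.987 across genes, which are not independent replicates. The exception was BMP2 day 10, with r = 0.909: its first replicate resembled BMP2 day 5 replicate 2 more (r = 0.976), and its second resembled BMP2 day 21 replicate 2 more (r = 0.959). BMP2 day 10 values are therefore given per library, and the counts below are also given without both of these libraries.

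A channel gene encodes either the pore that carries the ion or a subunit that changes how that pore opens, is trafficked or is held in the membrane. In a pore of the voltage-gated type, a charged helix moves when the membrane potential changes and opens the gate. Sodium pores drive the upstroke of the action potential in neurons and muscle, calcium pores couple depolarisation to contraction, secretion and gene expression, and potassium pores bring the membrane back to rest and set its resting level. Neurons and muscle use different members of the same families, which is why these genes are informative along both routes. In bulk RNA, fewer cells of a type and less RNA per cell cannot be told apart.

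Start sites were read from RefSeq for 95 of the 133 members. The 200 bases before the start are printed for 5 of them, chosen after their values were seen because at least 1 of their differences held: CACNA1C and CACNA1D, calcium pores that rose under both agents, KCNK5, which fell under both, and KCNQ5 and CACNA1E, which moved apart. They are on GRCh38.p14, 5′ to 3′ on the gene's strand. Capitals mark matches, on either strand, to one of 4 motifs. These are GGGCGG (the core of a GC box, a site bound by SP1-type factors) and TATAAA (the core of a TATA box). The other two are AGGTCA (a half-site of nuclear receptors, the family that holds the receptors of RA) and CCAAT (the core of a CCAAT box).
CACNA1C (chr12:2052787-2052986, + strand): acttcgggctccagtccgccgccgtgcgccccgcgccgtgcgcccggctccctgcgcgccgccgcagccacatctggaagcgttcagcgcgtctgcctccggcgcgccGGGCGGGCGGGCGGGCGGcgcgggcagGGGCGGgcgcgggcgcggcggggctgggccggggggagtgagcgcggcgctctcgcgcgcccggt
CACNA1D (chr3:53494411-53494610, + strand): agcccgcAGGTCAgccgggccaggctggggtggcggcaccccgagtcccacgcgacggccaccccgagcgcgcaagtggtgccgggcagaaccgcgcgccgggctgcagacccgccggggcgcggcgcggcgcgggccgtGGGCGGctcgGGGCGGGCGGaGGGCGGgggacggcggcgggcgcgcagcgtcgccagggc
KCNK5 (chr6:39229476-39229675, - strand): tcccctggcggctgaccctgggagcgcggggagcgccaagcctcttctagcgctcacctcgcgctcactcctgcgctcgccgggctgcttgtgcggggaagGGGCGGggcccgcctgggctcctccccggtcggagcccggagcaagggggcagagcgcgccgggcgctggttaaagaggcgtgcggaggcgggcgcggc
KCNQ5 (chr6:72621864-72622063, + strand): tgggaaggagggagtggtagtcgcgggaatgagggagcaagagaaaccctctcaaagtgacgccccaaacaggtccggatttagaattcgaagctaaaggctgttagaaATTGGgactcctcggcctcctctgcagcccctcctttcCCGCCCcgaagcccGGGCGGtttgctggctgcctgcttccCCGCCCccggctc
CACNA1E (chr1:181483317-181483516, + strand): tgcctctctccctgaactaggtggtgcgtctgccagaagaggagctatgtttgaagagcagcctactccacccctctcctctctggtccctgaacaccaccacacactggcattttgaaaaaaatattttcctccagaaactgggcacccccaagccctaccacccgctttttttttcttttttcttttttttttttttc

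Sequence differed widely among these 5. CACNA1C had 41 CpG dinucleotides and 84.5% G+C in its 200 bases, CACNA1D 36 and 84.5%, KCNK5 25 and 76.5%, KCNQ5 12 and 61.0%, and CACNA1E 2 and 47.0%. GGGCGG or its complement was found 5 times before CACNA1C, 4 times before CACNA1D, 3 times before KCNQ5 and once before KCNK5, overlapping matches included, and 0 times before CACNA1E. AGGTCA was found once, before CACNA1D, and CCAAT once, before KCNQ5. In windows from 250 bases before to 50 bases after the start, 62.1% of the 95 channel genes held GGGCGG against 58.5% of 15840 protein-coding genes. The shares with AGGTCA were 6.3% and 11.7%, those with TATAAA 6.3% and 9.6%, and those with CCAAT 34.7% and 36.4%. CpG-rich windows (observed over expected CpG of at least 0.6 and at least 50% G+C) made up 52.6% of the channel genes, 50 of 95, and 63.4% of all. They made up 70.0% (14 of 20) of the voltage-gated potassium pores and 41.7% (5 of 12) of the inward rectifiers. A match describes letters only, and the files hold no measurement of binding.

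Markers of cell types moved with time under both agents, and their part in the channel results below was not tested. The 6 markers of pluripotent cells summed to 5271 to 5942.5 CPM untreated, 146.7 to 147.5 CPM at RA day 21 and 167 to 168 CPM at BMP2 day 21, and 6 of 6 fell at each day 21. The 4 proliferation markers summed to 1668.5 to 2037 CPM untreated, 466 to 524 CPM at RA day 21 and 178 to 318 CPM at BMP2 day 21. The 10 neuronal markers summed to 109 to 152 CPM untreated, 817 to 1166 CPM at RA day 10, 680.3 to 727 CPM at RA day 21 and 303 to 325 CPM at BMP2 day 21. Of these, 4 rose and 1 fell at RA day 21. The one that fell was RBFOX3, a marker of mature neurons, at 0.642 CPM on average there and 11.2 CPM untreated. The 6 smooth muscle markers summed to 44.2 to 98.9 CPM untreated, 586 to 1306 CPM at BMP2 day 5 and 352 to 498 CPM at BMP2 day 21, and 6 of 6 rose at BMP2 day 5. The 6 cardiac markers summed to 31.9 to 78.5 CPM untreated and 346 to 1948 CPM at BMP2 day 5, where TNNI3 was at 0 and 0.0157 CPM. The 6 skeletal muscle markers summed to at most 20.4 CPM in any library, and the defining factors MYOD1 and MYOG had no count at BMP2 days 5 and 10. The 7 fibroblast and mesenchyme markers summed to 269 to 280.4 CPM untreated, 5684 to 5753 CPM at RA day 21 and 31618 to 33041 CPM at BMP2 day 21. The 8 markers of glia and neural crest summed to 86.8 to 100.3 CPM untreated and 15.9 to 19.2 CPM at RA day 21, where GFAP was at 0.0882 CPM on average. The 5 epithelial and 3 endothelial markers summed to 1505 to 1755 CPM and 93.5 to 151 CPM untreated, and to 4070.3 to 4105 CPM and 213 to 362 CPM at BMP2 day 21.

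The number of channel genes called against untreated cells grew with the days in RA, as did the share of all genes called. With BMP2, 30, 37 and 38 members were called at days 5, 10 and 21, while the share of all genes kept growing. At RA day 5, 10 members rose and 3 fell, 10.5% of the 124 tested, where 8.31% of all genes passed (5.59% higher and 2.72% lower). By RA day 10, 19 rose and 8 fell (21.8%), beside 24.0% of all genes (12.9% higher and 11.1% lower). The RA day 21 libraries had 30 members higher and 20 lower (40.3%), beside 44.6% (23.4% and 21.1%). With BMP2 the early change was wider: 17 rose and 13 fell by day 5 (24.2%), beside 29.2% of all genes (15.9% and 13.4%). At BMP2 day 10 the numbers were 20 and 17 (29.8%), beside 36.3% (19.8% and 16.4%), and at BMP2 day 21 they were 20 and 18 (30.6%), beside 47.1% (25.0% and 22.1%). The share of members called was below that of all genes in 5 of these 6 comparisons. No test of that gap was made.

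The median log2 difference of the members tested was 0.14, 0.21 and 0.25 at RA days 5, 10 and 21, and 0.01, -0.14 and 0.07 at BMP2 days 5, 10 and 21. With genes that lack a count in a group set at the bound that 3 counts allow, BMP2 days 10 and 21 gave -0.12 and 0.05. Over all genes the median was 0.10 or less in each of the 6. The counts depended on single libraries. Leaving out 1 library gave 2 to 21 called members at RA day 5, 7 to 42 at RA day 10, 23 to 57 at RA day 21, 12 to 40 at BMP2 day 5, 18 to 38 at BMP2 day 10 and 26 to 49 at BMP2 day 21. Without both BMP2 day 10 libraries, 21, 40 and 57 members were called at RA days 5, 10 and 21, and 40 and 49 at BMP2 days 5 and 21. Calls that held in every fit without 1 library numbered 2, 5 and 18 at the 3 RA days and 10, 15 and 19 at the 3 BMP2 days. Shares of all genes are given only for the main edgeR fit, and not for held calls. These counts are therefore not read as particular to channel genes. The genes whose calls held lead the accounts that follow.

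**Figure D1:**
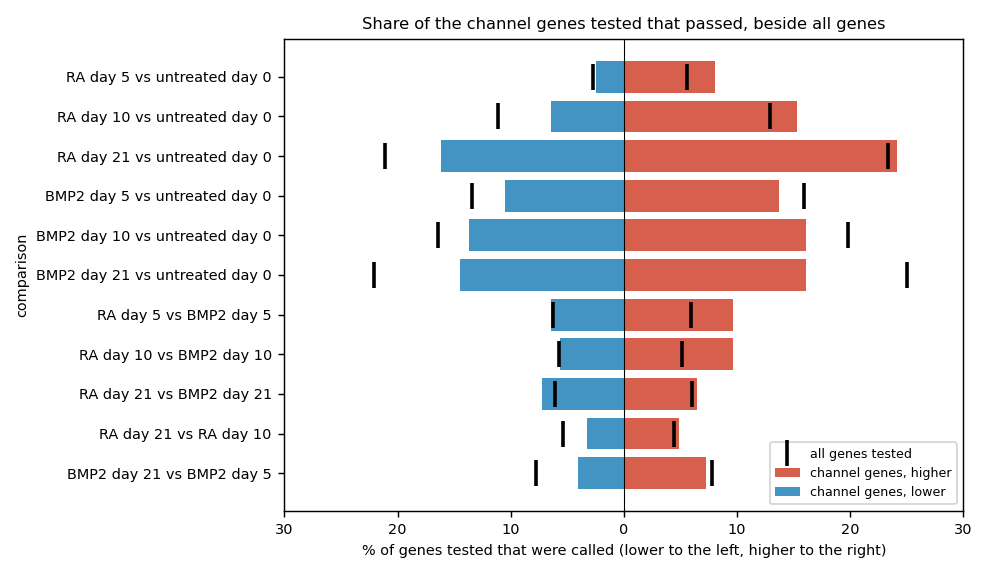
Share of the 124 channel genes tested that passed in each of 11 comparisons, in percent, with lower genes to the left and higher genes to the right. Bars are channel genes and black ticks all 19142 genes tested; at BMP2 day 21 both bars end short of the ticks at 22.1% and 25.0%.

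The direct tests compared the agents at the same day. At day 5, 12 members were higher with RA and 8 higher with BMP2, 16.1% of those tested beside 12.2% of all genes (5.97% and 6.25%). At day 10 these were 12 and 7 (15.3%), beside 10.8% (5.11% and 5.73%), and at day 21 they were 8 and 9 (13.7%), beside 12.1% (5.99% and 6.07%). From RA day 10 to RA day 21, 6 members rose and 4 fell (8.1%), beside 9.84% of all genes (4.47% and 5.37%). From BMP2 day 5 to BMP2 day 21, 9 rose and 5 fell (11.3%), beside 15.5% (7.77% and 7.75%). Only 5, 4 and 3 calls between the agents held at days 5, 10 and 21, and 0 in the last 2 comparisons, where 10 and 14 members had passed edgeR's adjusted threshold in the full fit. Fitted by edgeR on only the 4 libraries compared, 0 members passed between the agents at day 10 and 30 had an unadjusted p under 0.05, so no day 10 difference between the agents given here is a call in that fit. DESeq2 on all 14 libraries called 43 there. BMP2 day 10 against day 0 likewise had 5 calls in that fit and 37 in the full one. Leaving out 1 library gave 5 to 38, 8 to 30 and 4 to 26 calls between the agents, and 0 to 27 and 0 to 36 within RA and BMP2.

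Pore-forming sodium channel genes split into those that rose and those that fell. SCN9A, the pore of sensory and sympathetic neurons, rose under both agents by day 21, as did SCN3A, an embryonic brain form. SCN4A, the skeletal muscle pore, fell under both by then. Of the 9 members tested, 4 rose and 1 fell at RA day 21 (55.6%, beside 44.6% of all genes) and 4 rose and 2 fell at BMP2 day 21 (66.7%, beside 47.1%), with medians of 1.28 and 2.46 (0.75 with SCN1A, which has no untreated count, set at its bound). SCN9A had 2.09 and 2.296 CPM in the untreated libraries, 4.64 and 3.03, 7.196 and 5.28, and 27.5 and 33.8 CPM at days 5, 10 and 21 of RA, and 3.39 and 8.07, 6.49 and 8.52, and 6.73 and 17.5 CPM at those days of BMP2. Its untreated libraries lay below all 12 treated ones. The difference from day 0 was 3.80 ± 0.55 (edgeR adjusted p = 0.00054) at RA day 21 and 2.46 ± 0.52 (edgeR adjusted p = 0.0035, 1.64 without BMP2 day 21 replicate 2) at BMP2 day 21. SCN9A rose at BMP2 day 10 (1.77 ± 0.51, edgeR adjusted p = 0.022), a call lost without untreated day 0 replicate 1 or 2 (1.71 and 1.84) or BMP2 day 10 replicate 2 (1.56). SCN9A rose from RA day 10 to RA day 21 (2.30 ± 0.51, edgeR adjusted p = 0.027), a call lost without RA day 10 replicate 1 or 2 (2.50 and 2.05) or RA day 21 replicate 1 or 2 (2.40 and 2.10).

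SCN3A stood near 0 in untreated cells, with 0.243 and 0.0278 CPM in the untreated libraries, 1.26 and 0.904, 1.81 and 6.56, and 3.33 and 1.76 CPM at days 5, 10 and 21 of RA, and 0.1903 and 1.12, 0.514 and 1.01, and 5.07 and 2.69 CPM at those days of BMP2. Every treated library except BMP2 day 5 replicate 1 was above both untreated ones. The BMP2 day 21 difference was 4.89 ± 1.16 (edgeR adjusted p = 0.0064, 7.02 without untreated day 0 replicate 1, 3.98 without untreated day 0 replicate 2). SCN3A rose at RA day 10 (5.00 ± 1.16, edgeR adjusted p = 0.013), a call lost without untreated day 0 replicate 2 (4.09) or RA day 10 replicate 2 (3.81) and standing at 5.68 without RA day 10 replicate 1 or 7.13 without untreated day 0 replicate 1. SCN3A rose at RA day 21 (4.28 ± 1.13, edgeR adjusted p = 0.012), a call lost without untreated day 0 replicate 2 (3.38) or RA day 21 replicate 1 (3.74) and standing at 6.41 without untreated day 0 replicate 1. SCN2A, its neighbour on chromosome 2 and the pore of axon initial segments in early life, had 1.68 and 0.807 CPM in the untreated libraries, 1.71 and 1.71, 5.01 and 3.31, and 12.3 and 16.2 CPM at days 5, 10 and 21 of RA, and 1.54 and 1.02, 1.14 and 17.7, and 13.4 and 19.5 CPM at those days of BMP2. Only day 21 libraries and BMP2 day 10 replicate 2 exceeded 10 CPM. SCN2A rose at RA day 21 (3.53 ± 0.97, edgeR adjusted p = 0.014), a call lost without untreated day 0 replicate 2 (3.09) or RA day 21 replicate 2 (3.30) and standing at 4.15 without untreated day 0 replicate 1. SCN2A rose at BMP2 day 10 (2.93 ± 0.94, edgeR adjusted p = 0.035), a call lost without untreated day 0 replicate 1 or 2 (3.54 and 2.48) or BMP2 day 10 replicate 2 (-0.12) and standing at 3.84 without BMP2 day 10 replicate 1. SCN2A rose at BMP2 day 21 (3.73 ± 0.97, edgeR adjusted p = 0.01), a call lost without untreated day 0 replicate 2 (3.28) and standing at 4.34 without untreated day 0 replicate 1. SCN2A rose from BMP2 day 5 to BMP2 day 21 (3.68 ± 0.97, edgeR adjusted p = 0.034), a call lost in 7 of the 14 fits (3.38 to 4.004).

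SCN4A had 7.63 and 3.33 CPM in the untreated libraries, 2.12 and 3.65, 0.971 and 0.745, and 0.149 and 0.323 CPM at days 5, 10 and 21 of RA, and 0.609 and 1.38, 0.923 and 0.0447, and 0.164 and 0.126 CPM at those days of BMP2. Day 21 libraries of both agents lay below every untreated one. The difference at BMP2 day 21 was -5.22 ± 1.14 (edgeR adjusted p = 0.0042, -4.50 without untreated day 0 replicate 1). SCN4A fell at RA day 21 (-4.52 ± 1.08, edgeR adjusted p = 0.0074), a call lost without RA day 21 replicate 1 (-4.08) and standing at -5.19 without RA day 21 replicate 2 or -3.79 without untreated day 0 replicate 1. SCN4A fell at BMP2 day 10 (-3.47 ± 1.03, edgeR adjusted p = 0.024), a call lost without untreated day 0 replicate 1 (-2.76) and standing at -6.87 without BMP2 day 10 replicate 1 or -2.57 without BMP2 day 10 replicate 2. SCN8A, a widely used neuronal pore, went from 41.9 and 33.1 CPM untreated to between 11.0 and 20.9 CPM in the BMP2 libraries, and to 20.4 and 19.1 CPM at RA day 21. SCN8A fell at BMP2 day 5 (-1.31 ± 0.35, edgeR adjusted p = 0.02), a call lost without untreated day 0 replicate 1 or 2 (-1.14 and -1.48) or BMP2 day 5 replicate 1 (-0.97). SCN8A fell at BMP2 day 10 (-1.15 ± 0.35, edgeR adjusted p = 0.028), a call lost without untreated day 0 replicate 1 or 2 (-0.97 and -1.31) or BMP2 day 10 replicate 1 (-0.85). SCN8A fell at BMP2 day 21 (-1.08 ± 0.35, edgeR adjusted p = 0.028), a call lost without untreated day 0 replicate 1 or 2 (-0.91 and -1.25) or BMP2 day 21 replicate 1 or 2 (-1.02 and -1.14).

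SCN7A, the sodium-sensing pore of glia, had 0.0406 and 0.0835 CPM in the untreated libraries, 0.244 and 0.146, 0.343 and 0.119, and 0.0896 and 0.0808 CPM at days 5, 10 and 21 of RA, and 0.476 and 1.698, 1.92 and 0.134, and 3.28 and 1.34 CPM at those days of BMP2. SCN7A rose at BMP2 day 21 (5.14 ± 1.29, edgeR adjusted p = 0.0086), a call lost without untreated day 0 replicate 1 or 2 (4.76 and 5.76) and standing at 4.36 without BMP2 day 21 replicate 1. SCN7A was lower with RA than with BMP2 at day 21 (-4.73 ± 1.25, edgeR adjusted p = 0.037), a call lost in 8 of the 14 fits (-5.25 to -3.94). SCN7A rose at BMP2 day 5 (4.05 ± 1.25, edgeR adjusted p = 0.035), a call lost without untreated day 0 replicate 1 or 2 (3.67 and 4.67), RA day 21 replicate 1 or 2 (4.09 and 4.08) or BMP2 day 5 replicate 2 (2.89) and standing at 4.69 without BMP2 day 5 replicate 1. SCN7A rose at BMP2 day 10 (3.97 ± 1.24, edgeR adjusted p = 0.031), a call lost without untreated day 0 replicate 1 or 2 (3.59 and 4.59) or BMP2 day 10 replicate 1 (1.04) and standing at 4.86 without BMP2 day 10 replicate 2. SCN1A had no count in either untreated library and at most 0.448 CPM in any other, at RA day 21. It passed there, and the call was lost without any 1 of the 4 libraries compared. SCN11A passed in no comparison, with 0.0894 to 2.66 CPM over the 14 libraries. SCN10A was not tested and did not exceed 0.344 CPM.

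Per length, on the authors' RPKM scale, the untreated level of SCN8A was 0.184 and 0.141 RPKM and that of SCN4A 0.217 and 0.0918 RPKM, ranges that overlap. At RA day 21 the level of SCN9A was 0.165 and 0.200 RPKM. These RPKM values divide by the whole gene span, introns included, in most members, so they understate long genes.

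Auxiliary sodium channel subunits, which tune gating and hold pores in place, moved in opposite directions. SCN3B rose and SCN4B fell under both agents by day 21. SCN3B had 2.596 and 1.92 CPM in the untreated libraries, 11.3 and 12.3, 15.2 and 19.9, and 8.71 and 9.78 CPM at days 5, 10 and 21 of RA, and 3.73 and 3.95, 4.35 and 4.96, and 5.28 and 12.1 CPM at those days of BMP2. All treated libraries exceeded both untreated ones. The differences were 2.96 ± 0.38 (edgeR adjusted p = 0.00096) at RA day 10, 2.03 ± 0.37 (edgeR adjusted p = 0.0018) at RA day 21 and 1.95 ± 0.37 (edgeR adjusted p = 0.002, 1.24 without BMP2 day 21 replicate 2) at BMP2 day 21. SCN3B rose at RA day 5 (2.39 ± 0.38, edgeR adjusted p = 0.0049), a call lost without untreated day 0 replicate 2 (2.18). SCN3B was higher with RA than with BMP2 at day 5 (1.62 ± 0.37, edgeR adjusted p = 0.02), a call lost without RA day 5 replicate 1 or 2 (1.69 and 1.55) or BMP2 day 5 replicate 1 or 2 (1.58 and 1.65). SCN3B was higher with RA than with BMP2 at day 10 (1.92 ± 0.37, edgeR adjusted p = 0.013), a call lost without RA day 10 replicate 2 (1.70). SCN3B rose at BMP2 day 10 (1.04 ± 0.36, edgeR adjusted p = 0.047), a call lost in 12 of the 14 fits (0.84 to 1.28).

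SCN4B had 8.903 and 6.42 CPM in the untreated libraries, 1.55 and 5.02, 1.48 and 2.89, and 1.26 and 1.64 CPM at days 5, 10 and 21 of RA, and 0.1903 and 0.472, 0.639 and 0.358, and 0.657 and 1.05 CPM at those days of BMP2. Each BMP2 library lay at or under 1.05 CPM. It fell by day 5 (-4.51 ± 0.74 (edgeR adjusted p = 0.002, -5.28 without BMP2 day 5 replicate 2)), at day 10 (-3.93 ± 0.71 (edgeR adjusted p = 0.0026)) and at day 21 (-3.16 ± 0.69 (edgeR adjusted p = 0.004)) of BMP2. SCN4B fell at RA day 21 (-2.40 ± 0.66, edgeR adjusted p = 0.014), a call lost without untreated day 0 replicate 1 (-2.14) or RA day 21 replicate 1 or 2 (-2.23 and -2.62). SCN4B was higher with RA than with BMP2 at day 5 (3.29 ± 0.70, edgeR adjusted p = 0.016), a call lost without RA day 5 replicate 2 (2.20) or BMP2 day 5 replicate 1 (2.80) and standing at 4.09 without BMP2 day 5 replicate 2 or 3.90 without RA day 5 replicate 1. SCN2B stood at 4.15 and 4.63 CPM at RA day 21 and 2.18 and 6.13 CPM at BMP2 day 21, from 1.18 and 0.891 untreated, and did not pass against day 0. SCN2B rose from BMP2 day 5 to BMP2 day 21 (3.39 ± 0.96, edgeR adjusted p = 0.041), a call lost in 10 of the 14 fits (2.46 to 4.73).

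The L-type calcium channel pores CACNA1C and CACNA1D, which carry the long-lasting calcium current of muscle, heart and neurons, rose under both agents. CACNA1C rose at every BMP2 day and from RA day 10, and CACNA1D at every day of both agents. CACNA1E, the R-type pore, went up with RA and down with BMP2. Of the 10 pore genes, 3 rose and none fell at RA day 21 (median 0.93), where 44.6% of all genes passed, and 2 rose and 1 fell at BMP2 day 21 (median 0.06), where 47.1% did. CACNA1C had 8.11 and 5.16 CPM in the untreated libraries, 12.6 and 6.18, 23.8 and 32.7, and 73.7 and 68.5 CPM at days 5, 10 and 21 of RA, and 63.8 and 71.99, 65.98 and 45.6, and 61.1 and 48.97 CPM at those days of BMP2. The BMP2 level was reached by day 5, and only RA day 21 was in the same range. Its differences from day 0 were 2.09 ± 0.35 (edgeR adjusted p = 0.0033) and 3.42 ± 0.37 (edgeR adjusted p = 0.00016) at RA days 10 and 21. They were 3.36 ± 0.37 (edgeR adjusted p = 0.00036), 3.07 ± 0.37 (edgeR adjusted p = 0.00044) and 3.05 ± 0.37 (edgeR adjusted p = 0.0002) at BMP2 days 5, 10 and 21. At day 5 it was lower with RA than with BMP2, by -2.86 ± 0.36 (edgeR adjusted p = 0.0021, -3.45 without RA day 5 replicate 1). At days 10 and 21 the same contrast was -0.98 ± 0.34 (edgeR adjusted p = 0.094) and 0.37 ± 0.34 (edgeR adjusted p = 0.5), neither of which passed. CACNA1C rose from RA day 10 to RA day 21 (1.33 ± 0.34, edgeR adjusted p = 0.039), a call lost in 10 of the 14 fits (1.08 to 1.55).

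CACNA1D had 1.66 and 1.04 CPM in the untreated libraries, 25.4 and 23.7, 38.4 and 36.05, and 14.9 and 12 CPM at days 5, 10 and 21 of RA, and 1.73 and 5.64, 5.5 and 4.54, and 10.04 and 9.09 CPM at those days of BMP2. RA libraries were highest at day 10, and the BMP2 libraries were highest at day 21, where they still lay below RA. It rose at RA day 5 (4.19 ± 0.50 (edgeR adjusted p = 0.0013)), RA day 10 (4.79 ± 0.51 (edgeR adjusted p = 0.00044)), RA day 21 (3.32 ± 0.48 (edgeR adjusted p = 0.00056)) and BMP2 day 21 (2.83 ± 0.47 (edgeR adjusted p = 0.001)). RA exceeded BMP2 by 2.73 ± 0.46 (edgeR adjusted p = 0.0064, 2.12 without BMP2 day 5 replicate 1, 3.82 without BMP2 day 5 replicate 2) at day 5 and 2.89 ± 0.47 (edgeR adjusted p = 0.0063) at day 10. CACNA1D rose at BMP2 day 10 (1.90 ± 0.46, edgeR adjusted p = 0.01), a call lost without untreated day 0 replicate 2 (1.59). CACNA1D rose at BMP2 day 5 (1.45 ± 0.46, edgeR adjusted p = 0.037), a call lost in 8 of the 14 fits (0.40 to 1.82) and standing at 2.06 without BMP2 day 5 replicate 1.

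CACNA1E had 4.95 and 1.503 CPM in the untreated libraries, 1.34 and 2.41, 7.98 and 7.21, and 24.7 and 22.1 CPM at days 5, 10 and 21 of RA, and 1.94 and 3.65, 2.18 and 0.268, and 0.164 and 0.462 CPM at those days of BMP2. The day 21 groups did not overlap, with RA above both untreated libraries and BMP2 below them. Between the agents at day 21 the difference was 6.22 ± 1.05 (edgeR adjusted p = 0.0072, 7.12 without BMP2 day 21 replicate 2). CACNA1E rose at RA day 21 (2.86 ± 0.87, edgeR adjusted p = 0.023), a call lost without untreated day 0 replicate 2 (2.24) or RA day 21 replicate 1 or 2 (2.77 and 2.92) and standing at 3.96 without untreated day 0 replicate 1. CACNA1E fell at BMP2 day 21 (-3.35 ± 0.94, edgeR adjusted p = 0.015), a call lost without untreated day 0 replicate 1 (-2.26) or BMP2 day 21 replicate 1 (-2.79) and standing at -4.26 without BMP2 day 21 replicate 2 or -3.98 without untreated day 0 replicate 2. CACNA1E fell from BMP2 day 5 to BMP2 day 21 (-3.15 ± 0.94, edgeR adjusted p = 0.048), a call lost in 12 of the 14 fits (-4.08 to -2.59).

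The other calcium pores passed rarely. CACNA1H, a T-type pore that opens near rest, was the highest of them in CPM, at 40.2 and 26.7 untreated, 66.2 and 48.9 at RA day 10 and 18.3 and 9.19 at BMP2 day 21, without a pass in any of the 11 comparisons. CACNA1B and CACNA1A, the N- and P/Q-type pores of nerve endings, CACNA1G and CACNA1I, further T-type pores, and CACNA1F, the retinal L-type pore, did not pass in any of the 11 either. CACNA1S, the L-type pore of skeletal muscle, stayed at or under 1.07 CPM. CACNA1S rose at RA day 10 (2.08 ± 0.58, edgeR adjusted p = 0.028), a call lost in 6 of the 14 fits (1.67 to 2.62). CACNA1S fell from RA day 10 to RA day 21 (-2.18 ± 0.58, edgeR adjusted p = 0.044), a call lost in 12 of the 14 fits (-2.30 to -2.15).

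**Figure D2:**
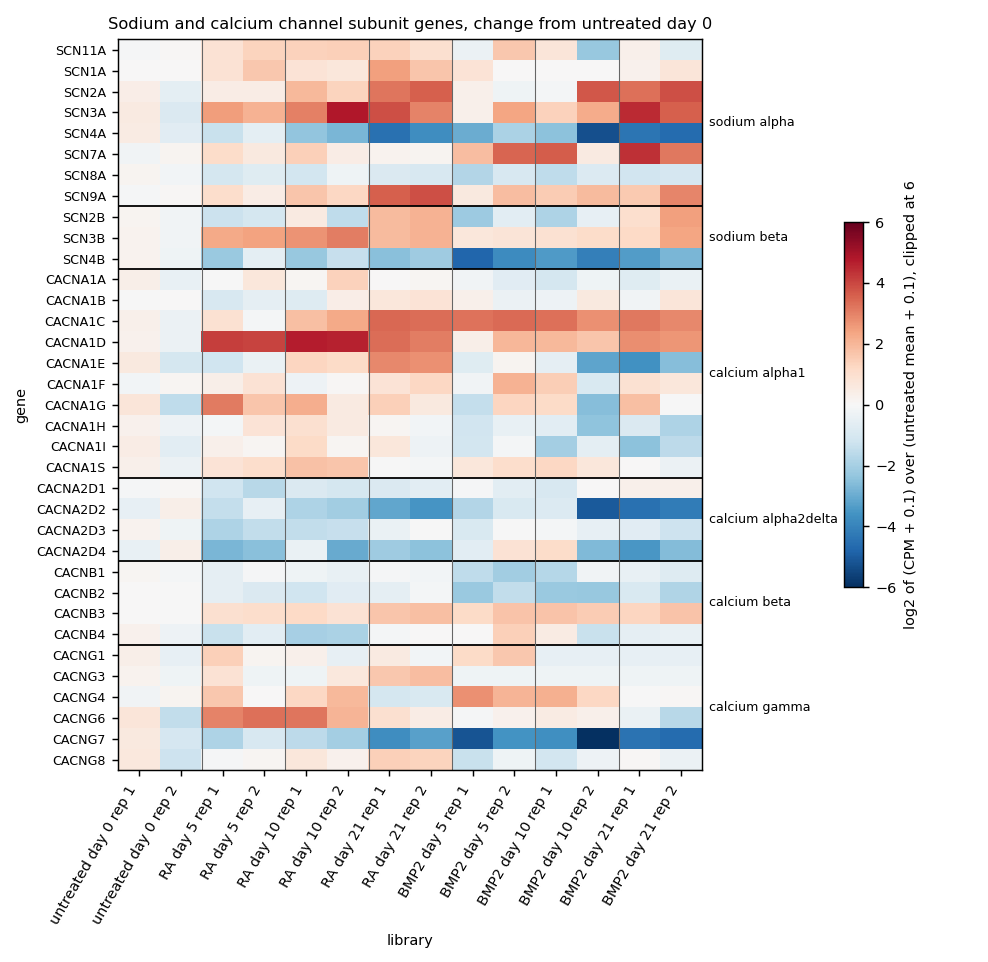
Sodium and calcium channel genes (35 rows) in each of the 14 libraries (columns), as log2 of CPM + 0.1 over the untreated mean, with colour limits at 6. CACNA1C and CACNA1D are red in the day 21 libraries of both agents, SCN4A and CACNG7 blue, and CACNA1E red with RA and blue with BMP2 at day 21.

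Auxiliary calcium channel subunits set how much pore reaches the membrane. CACNB3, a cytoplasmic subunit, rose under both agents, CACNB2 fell with BMP2, and CACNG7 fell under both by day 21. CACNB3 had 10.95 and 10.5 CPM in the untreated libraries, 21.1 and 22.2, 24.6 and 19.6, and 33.96 and 37.5 CPM at days 5, 10 and 21 of RA, and 23.7 and 35.7, 34.8 and 30.7, and 26.2 and 35.6 CPM at those days of BMP2. All 12 treated libraries were above both untreated ones. Its difference was 1.74 ± 0.23 (edgeR adjusted p = 0.00039) at RA day 21, and 1.47 ± 0.23 (edgeR adjusted p = 0.0018), 1.61 ± 0.23 (edgeR adjusted p = 0.00092) and 1.53 ± 0.23 (edgeR adjusted p = 0.00061) at BMP2 days 5, 10 and 21. CACNB3 rose at RA day 5 (1.01 ± 0.23, edgeR adjusted p = 0.026), a call lost without untreated day 0 replicate 1 or 2 (1.05 and 0.98) or RA day 5 replicate 1 or 2 (1.05 and 1.00). CACNB3 rose at RA day 10 (1.04 ± 0.23, edgeR adjusted p = 0.01), a call lost without untreated day 0 replicate 1 or 2 (1.08 and 1.01) or RA day 10 replicate 1 (0.90). CACNB2 went from 5.496 and 5.22 CPM untreated to 1.08 and 1.03 CPM at BMP2 day 10 (-2.34 ± 0.44 (edgeR adjusted p = 0.0031)). CACNB2 fell at BMP2 day 5 (-1.85 ± 0.43, edgeR adjusted p = 0.011), a call lost without BMP2 day 5 replicate 1 (-1.505). CACNB2 fell at BMP2 day 21 (-1.35 ± 0.42, edgeR adjusted p = 0.024), a call lost without untreated day 0 replicate 1 or 2 (-1.31 and -1.39) or BMP2 day 21 replicate 2 (-0.94). CACNB1 fell to 1.26 and 0.833 CPM at BMP2 day 5. CACNB1 fell at BMP2 day 5 (-1.88 ± 0.49, edgeR adjusted p = 0.018), a call lost without untreated day 0 replicate 1 or 2 (-1.77 and -1.98) or BMP2 day 5 replicate 2 (-1.58). CACNB4 ranged from 0.838 to 10.0 CPM, and more than 50% of its span lies inside another coding gene. CACNB4 fell at RA day 10 (-2.08 ± 0.64, edgeR adjusted p = 0.041), a call lost in 10 of the 14 fits (-2.34 to -1.75).

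Among the alpha2delta subunits, which anchor on the outside of the cell and bind gabapentin in the CACNA2D1 and CACNA2D2 forms, 2 fell and none rose at RA days 5 and 10, where 8.31% and 24.0% of all genes passed, and no call held. CACNA2D2 had 24.9 and 44.3 CPM in the untreated libraries, 12.8 and 24.3, 9.63 and 8.17, and 3.93 and 2.86 CPM at days 5, 10 and 21 of RA, and 10.3 and 18.1, 19.6 and 0.961, and 1.48 and 1.76 CPM at those days of BMP2. Of the BMP2 day 10 libraries, replicate 1 was near day 5 and replicate 2 near day 21. CACNA2D2 fell at RA day 21 (-3.35 ± 1.00, edgeR adjusted p = 0.021), a call lost without untreated day 0 replicate 2 (-2.87) or RA day 21 replicate 1 or 2 (-3.61 and -3.15). CACNA2D2 fell at BMP2 day 21 (-4.41 ± 1.06, edgeR adjusted p = 0.007), a call lost without BMP2 day 21 replicate 1 or 2 (-4.29 and -4.53). CACNA2D1 was at 59.6 and 66.9 CPM untreated, 27.97 and 19.9 at RA day 5 and 79.0 and 79.4 at BMP2 day 21. CACNA2D1 fell at RA day 5 (-1.40 ± 0.31, edgeR adjusted p = 0.023), a call lost without untreated day 0 replicate 1 or 2 (-1.48 and -1.32) or RA day 5 replicate 1 or 2 (-1.67 and -1.15). CACNA2D1 fell at RA day 10 (-0.95 ± 0.31, edgeR adjusted p = 0.048), a call lost in 11 of the 14 fits (-1.03 to -0.83). CACNA2D1 was lower with RA than with BMP2 at day 5 (-1.09 ± 0.31, edgeR adjusted p = 0.047), a call lost in 12 of the 14 fits (-1.35 to -0.78). CACNA2D1 was lower with RA than with BMP2 at day 21 (-1.08 ± 0.31, edgeR adjusted p = 0.048), a call lost in 11 of the 14 fits (-1.20 to -0.99). CACNA2D3 fell at RA day 10 (-1.46 ± 0.38, edgeR adjusted p = 0.022), a call lost without untreated day 0 replicate 1 or 2 (-1.18 and -1.69) or RA day 10 replicate 1 or 2 (-1.40 and -1.46). CACNA2D3 fell at RA day 5 (-1.67 ± 0.39, edgeR adjusted p = 0.028), a call lost in 6 of the 14 fits (-1.91 to -1.39).

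CACNG genes encode relatives of the muscle calcium channel gamma subunit, of which several are better known as partners of glutamate receptors. CACNG7 had 28.5 and 9.44 CPM in the untreated libraries, 5.27 and 9.64, 6.36 and 4.47, and 1.33 and 1.89 CPM at days 5, 10 and 21 of RA, and 0.419 and 1.48, 1.38 and 0.0894, and 0.780 and 0.672 CPM at those days of BMP2. Its differences from day 0 with BMP2 were -4.66 ± 1.07 (edgeR adjusted p = 0.008, -7.70 without BMP2 day 10 replicate 1, -3.78 without BMP2 day 10 replicate 2, -3.66 without untreated day 0 replicate 1, -5.25 without untreated day 0 replicate 2) at day 10 and -4.70 ± 1.07 (edgeR adjusted p = 0.0053, -3.70 without untreated day 0 replicate 1, -5.29 without untreated day 0 replicate 2) at day 21. CACNG7 fell at RA day 21 (-3.56 ± 1.01, edgeR adjusted p = 0.016), a call lost without untreated day 0 replicate 1 (-2.55) or RA day 21 replicate 1 or 2 (-3.34 and -3.85) and standing at -4.14 without untreated day 0 replicate 2. CACNG7 fell at BMP2 day 5 (-4.31 ± 1.05, edgeR adjusted p = 0.013), a call lost without untreated day 0 replicate 1 (-3.31) or BMP2 day 5 replicate 1 (-3.68) and standing at -5.46 without BMP2 day 5 replicate 2 or -4.90 without untreated day 0 replicate 2. CACNG4 had 9.37 and 12.04 CPM in the untreated libraries, 32.7 and 11.1, 25.8 and 41.1, and 5.08 and 5.71 CPM at days 5, 10 and 21 of RA, and 73.3 and 44.8, 47.3 and 25.4, and 10.7 and 11.1 CPM at those days of BMP2. It was highest at BMP2 day 5 and back at the untreated level by BMP2 day 21. CACNG4 rose at BMP2 day 5 (2.46 ± 0.50, edgeR adjusted p = 0.006), a call lost without untreated day 0 replicate 1 (2.29). CACNG4 rose at BMP2 day 10 (1.76 ± 0.49, edgeR adjusted p = 0.019), a call lost without untreated day 0 replicate 1 or 2 (1.59 and 1.95) or BMP2 day 10 replicate 1 (1.24). CACNG4 fell from RA day 10 to RA day 21 (-2.63 ± 0.51, edgeR adjusted p = 0.019), a call lost without RA day 10 replicate 2 (-2.29) or RA day 21 replicate 1 or 2 (-2.59 and -2.76). CACNG4 fell from BMP2 day 5 to BMP2 day 21 (-2.44 ± 0.50, edgeR adjusted p = 0.018), a call lost without BMP2 day 5 replicate 1 (-2.04) or BMP2 day 21 replicate 1 or 2 (-2.41 and -2.48). CACNG4 rose at RA day 10 (1.64 ± 0.49, edgeR adjusted p = 0.036), a call lost in 7 of the 14 fits (1.29 to 1.97). CACNG6 reached 6.51 and 8.45 CPM at RA day 5 from 1.298 and 0.209 untreated. CACNG6 rose at RA day 10 (2.91 ± 0.81, edgeR adjusted p = 0.028), a call lost without untreated day 0 replicate 2 (2.11) or RA day 10 replicate 1 (2.21) and standing at 4.73 without untreated day 0 replicate 1. CACNG6 rose at RA day 5 (3.33 ± 0.83, edgeR adjusted p = 0.037), a call lost in 7 of the 14 fits (2.52 to 3.50) and standing at 5.15 without untreated day 0 replicate 1. CACNG6 was higher with RA than with BMP2 at day 5 (3.18 ± 0.82, edgeR adjusted p = 0.034), a call lost in 6 of the 14 fits (2.97 to 3.36). CACNG8 lay next to both on chromosome 19 and had 16.5 and 15.3 CPM at RA day 21 from 9.47 and 2.505 untreated, without a pass in any of the 11 comparisons.

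Voltage-gated potassium pores formed the largest class, with 30 members and 29 tested. Of these, 6 rose and 5 fell at RA day 21 (37.9%, beside 44.6% of all genes) and 4 rose and 4 fell at BMP2 day 21 (27.6%, beside 47.1%), with medians of -0.20 and 0.23. KCNQ5, a subunit of the M-current that damps repetitive firing, rose with BMP2. KCNA5, the ultra-rapid pore of the atrium and of smooth muscle, rose under both agents by day 21, and KCND2, a transient A-type pore, fell early with BMP2. KCNQ5 had 1.42 and 1.89 CPM in the untreated libraries, 0.773 and 0.438, 0.0761 and 0.596, and 0.1195 and 0.108 CPM at days 5, 10 and 21 of RA, and 12.1 and 4.28, 4.701 and 20.9, and 30.2 and 34.5 CPM at those days of BMP2. RA and BMP2 libraries did not overlap on any day. The difference from day 0 was 4.28 ± 0.91 (edgeR adjusted p = 0.0037) at BMP2 day 21, and RA lay below BMP2 by -8.13 ± 1.13 (edgeR adjusted p = 0.0031) at day 21. KCNQ5 fell at RA day 21 (-3.84 ± 0.98, edgeR adjusted p = 0.01), a call lost without RA day 21 replicate 1 or 2 (-3.93 and -3.78). KCNQ5 rose at BMP2 day 10 (2.95 ± 0.86, edgeR adjusted p = 0.024), a call lost without untreated day 0 replicate 1 or 2 (2.76 and 3.17) or BMP2 day 10 replicate 2 (1.499) and standing at 3.65 without BMP2 day 10 replicate 1. KCNQ5 was lower with RA than with BMP2 at day 5 (-3.76 ± 0.91, edgeR adjusted p = 0.027), a call lost without RA day 5 replicate 1 or 2 (-4.21 and -3.41) or BMP2 day 5 replicate 1 (-2.83). KCNQ5 was lower with RA than with BMP2 at day 10 (-5.21 ± 0.98, edgeR adjusted p = 0.011), a call lost without RA day 10 replicate 1 (-4.42) and standing at -5.90 without BMP2 day 10 replicate 1, -3.75 without BMP2 day 10 replicate 2 or -7.36 without RA day 10 replicate 2.

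KCNQ1, which overlaps the antisense transcript KCNQ1OT1, stayed at or under 1.79 CPM and did not pass in any of the 11 comparisons. KCNQ3 ranged from 1.28 to 5.41 CPM, with 1 call. KCNQ3 fell at RA day 10 (-1.32 ± 0.41, edgeR adjusted p = 0.04), a call lost in 10 of the 14 fits (-1.53 to -0.71).

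KCNH2, the hERG pore that repolarises the heart, had 3.85 and 3.41 CPM in the untreated libraries, 14.99 and 23.2, 37.1 and 34.9, and 17.5 and 14.8 CPM at days 5, 10 and 21 of RA, and 16.3 and 18.2, 20.5 and 4.02, and 10.2 and 7.39 CPM at those days of BMP2. All treated libraries exceeded both untreated ones. KCNH2 rose at RA day 10 (3.31 ± 0.61, edgeR adjusted p = 0.0046), a call lost without untreated day 0 replicate 2 (3.22). KCNH2 rose at RA day 21 (2.15 ± 0.58, edgeR adjusted p = 0.013), a call lost without untreated day 0 replicate 1 or 2 (2.25 and 2.07) or RA day 21 replicate 1 (2.02). KCNH2 rose at BMP2 day 5 (2.25 ± 0.58, edgeR adjusted p = 0.017), a call lost without untreated day 0 replicate 1 or 2 (2.34 and 2.16) or BMP2 day 5 replicate 2 (2.20). KCNH2 rose at RA day 5 (2.39 ± 0.58, edgeR adjusted p = 0.034), a call lost in 10 of the 14 fits (2.07 to 2.67). KCNH2 rose at BMP2 day 10 (1.76 ± 0.57, edgeR adjusted p = 0.036), a call lost in 6 of the 14 fits (0.15 to 1.85) and standing at 2.50 without BMP2 day 10 replicate 2. KCNH1 lay between 0.216 and 7.91 CPM, with the highest values in 1 library of BMP2 day 5 and 1 of BMP2 day 10, and did not pass in any of the 11 comparisons. KCNH7 rose to 3.03 and 3.46 CPM at RA day 10 from 0.0811 and 0.111 untreated. KCNH7 rose at RA day 10 (5.03 ± 1.39, edgeR adjusted p = 0.027), a call lost without untreated day 0 replicate 1 or 2 (4.84 and 5.28) or RA day 10 replicate 1 or 2 (5.15 and 4.95). KCNH7 rose at RA day 21 (3.60 ± 1.33, edgeR adjusted p = 0.049), a call lost in 10 of the 14 fits (3.41 to 3.85).

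KCNA5 had 3.93 and 4.59 CPM in the untreated libraries, 3.25 and 2.84, 2.21 and 2.85, and 11.6 and 17.2 CPM at days 5, 10 and 21 of RA, and 4.22 and 5.75, 4.93 and 8.54, and 19.2 and 15.6 CPM at those days of BMP2. Day 21 libraries of both agents lay above the rest. It rose by 1.75 ± 0.34 (edgeR adjusted p = 0.0026) at RA day 21 and 2.03 ± 0.34 (edgeR adjusted p = 0.0011) at BMP2 day 21. KCNA5 was lower with RA than with BMP2 at day 10 (-1.41 ± 0.34, edgeR adjusted p = 0.029), a call lost without RA day 10 replicate 1 or 2 (-1.25 and -1.62) or BMP2 day 10 replicate 2 (-0.96). KCNA5 rose from RA day 10 to RA day 21 (2.51 ± 0.35, edgeR adjusted p = 0.0088), a call lost without RA day 10 replicate 2 (2.66) or RA day 21 replicate 2 (2.16). KCNA5 rose from BMP2 day 5 to BMP2 day 21 (1.80 ± 0.34, edgeR adjusted p = 0.015), a call lost without BMP2 day 5 replicate 1 (1.59) or BMP2 day 21 replicate 1 or 2 (1.64 and 1.94). KCNA1 and KCNA4, both axonal pores of the same subfamily, were also highest at RA day 21, with 5.12 and 9.997 CPM and 3.91 and 5.29 CPM. KCNA1 rose at RA day 21 (2.65 ± 0.84, edgeR adjusted p = 0.027), a call lost without untreated day 0 replicate 1 or 2 (3.04 and 2.33) or RA day 21 replicate 2 (2.07). KCNA1 rose from BMP2 day 5 to BMP2 day 21 (3.56 ± 0.90, edgeR adjusted p = 0.03), a call lost without RA day 21 replicate 1 or 2 (3.54 and 3.54), BMP2 day 5 replicate 1 (2.72) or BMP2 day 21 replicate 1 or 2 (3.01 and 3.96) and standing at 6.06 without BMP2 day 5 replicate 2. KCNA4 rose at RA day 21 (5.13 ± 1.33, edgeR adjusted p = 0.011), a call lost without untreated day 0 replicate 2 (4.23) and standing at 7.27 without untreated day 0 replicate 1. KCNA4 rose at BMP2 day 21 (3.54 ± 1.26, edgeR adjusted p = 0.042), a call lost in 7 of the 14 fits (2.64 to 3.79) and standing at 5.68 without untreated day 0 replicate 1. KCNA4 rose from BMP2 day 5 to BMP2 day 21 (4.50 ± 1.34, edgeR adjusted p = 0.048), a call lost in 12 of the 14 fits (3.58 to 9.46). KCNA3, the pore of lymphocytes and some neurons, fell to 0.152 and 0.362 CPM at BMP2 day 5 from 2.01 and 2.89 untreated (-3.23 ± 0.67 (edgeR adjusted p = 0.0065, -3.96 without BMP2 day 5 replicate 2)). KCNA3 fell at BMP2 day 10 (-2.53 ± 0.65, edgeR adjusted p = 0.014), a call lost without untreated day 0 replicate 2 (-2.25) or BMP2 day 10 replicate 1 (-2.32). KCNA3 fell at BMP2 day 21 (-1.98 ± 0.63, edgeR adjusted p = 0.027), a call lost without untreated day 0 replicate 2 (-1.69) or BMP2 day 21 replicate 2 (-1.49) and standing at -2.69 without BMP2 day 21 replicate 1. KCNA3 was higher with RA than with BMP2 at day 5 (2.75 ± 0.66, edgeR adjusted p = 0.026), a call lost without RA day 5 replicate 1 or 2 (2.93 and 2.55) or BMP2 day 5 replicate 1 or 2 (2.27 and 3.50). KCNA3 fell at RA day 21 (-1.89 ± 0.63, edgeR adjusted p = 0.033), a call lost without untreated day 0 replicate 1 or 2 (-2.12 and -1.60) or RA day 21 replicate 1 or 2 (-1.99 and -1.81). KCNA3 was higher with RA than with BMP2 at day 10 (2.76 ± 0.66, edgeR adjusted p = 0.027), a call lost without RA day 10 replicate 2 (1.87), RA day 21 replicate 1 or 2 (2.75 and 2.75) or BMP2 day 10 replicate 1 or 2 (2.55 and 3.01). KCNA2 had 0.179 to 2.82 CPM and did not pass. KCNA6 had 16.5 and 17.2 CPM in the untreated libraries, 10.7 and 10.7, 10.5 and 11.6, and 5.87 and 7.64 CPM at days 5, 10 and 21 of RA, and 36.4 and 33.1, 35.3 and 18.6, and 9.34 and 16.2 CPM at those days of BMP2, but most of its span lies inside another coding gene and its values are uncertain. KCNA6 fell at RA day 21 (-1.32 ± 0.33, edgeR adjusted p = 0.0091), a call lost without RA day 21 replicate 1 (-1.15). KCNA6 was lower with RA than with BMP2 at day 5 (-1.70 ± 0.33, edgeR adjusted p = 0.011), a call lost without RA day 5 replicate 1 or 2 (-1.70 and -1.70) or BMP2 day 5 replicate 1 (-1.63). KCNA6 rose at BMP2 day 5 (1.04 ± 0.33, edgeR adjusted p = 0.037), a call lost in 6 of the 14 fits (0.97 to 1.14). KCNA6 was lower with RA than with BMP2 at day 10 (-1.29 ± 0.33, edgeR adjusted p = 0.036), a call lost in 11 of the 14 fits (-1.38 to -0.75). KCNA6 fell from BMP2 day 5 to BMP2 day 21 (-1.44 ± 0.33, edgeR adjusted p = 0.024), a call lost without BMP2 day 5 replicate 1 or 2 (-1.37 and -1.53) or BMP2 day 21 replicate 1 or 2 (-1.09 and -1.90).

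KCND2 had 5.17 and 1.98 CPM in the untreated libraries, 1.26 and 1.08, 1.94 and 1.07, and 3.39 and 3.99 CPM at days 5, 10 and 21 of RA, and 0.114 and 0.283, 0.319 and 0.581, and 5.42 and 2.94 CPM at those days of BMP2. BMP2 days 5 and 10 were below every other library, and BMP2 day 21 was back near the untreated level. Its differences from day 0 were -4.14 ± 0.69 (edgeR adjusted p = 0.0022, -4.91 without BMP2 day 5 replicate 2, -3.29 without untreated day 0 replicate 1) at BMP2 day 5 and -2.99 ± 0.65 (edgeR adjusted p = 0.0061, -2.14 without untreated day 0 replicate 1) at BMP2 day 10. KCND2 rose from BMP2 day 5 to BMP2 day 21 (4.37 ± 0.69, edgeR adjusted p = 0.011), a call lost without BMP2 day 5 replicate 1 (3.87) and standing at 5.15 without BMP2 day 5 replicate 2. KCND2 was higher with RA than with BMP2 at day 5 (2.53 ± 0.66, edgeR adjusted p = 0.034), a call lost in 6 of the 14 fits (2.04 to 3.32). KCND3 of the same family had 12.1 CPM in BMP2 day 10 replicate 2 and 2.09 in replicate 1, from 1.74 and 1.06 untreated. KCND3 rose at BMP2 day 10 (2.34 ± 0.82, edgeR adjusted p = 0.047), a call lost in 11 of the 14 fits (0.58 to 2.74) and standing at 3.11 without BMP2 day 10 replicate 1.

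KCNC1, a pore of fast-spiking neurons of which most of the span lies in another coding gene, had 5.76 and 2.09 CPM untreated and 0 and 0.2099 CPM at BMP2 day 21 (-5.20 ± 1.15 (edgeR adjusted p = 0.0044, -4.21 without BMP2 day 21 replicate 1, -10.83 without BMP2 day 21 replicate 2, -4.29 without untreated day 0 replicate 1)). KCNC1 fell at BMP2 day 10 (-3.30 ± 1.01, edgeR adjusted p = 0.028), a call lost without untreated day 0 replicate 1 (-2.39) or BMP2 day 10 replicate 2 (-2.70) and standing at -4.44 without BMP2 day 10 replicate 1. KCNC1 was higher with RA than with BMP2 at day 5 (4.07 ± 1.03, edgeR adjusted p = 0.031), a call lost without RA day 5 replicate 2 (3.27), RA day 21 replicate 1 or 2 (4.06 and 4.06) or BMP2 day 5 replicate 1 or 2 (4.13 and 4.01). KCNC1 was higher with RA than with BMP2 at day 10 (3.74 ± 1.02, edgeR adjusted p = 0.044), a call lost in 11 of the 14 fits (3.13 to 3.90) and standing at 4.88 without BMP2 day 10 replicate 1. KCNC4 ranged from 6.62 to 23.8 CPM and did not pass. KCNB2, a delayed rectifier, was at 0.7301 and 0.668 CPM untreated, 1.12 and 1.15 CPM at RA day 10 and 0.106 and 0.0894 CPM at BMP2 day 10. BMP2 day 10 differed from day 0 by -2.80 ± 0.57 (edgeR adjusted p = 0.0045), and RA exceeded BMP2 at that day by 3.50 ± 0.58 (edgeR adjusted p = 0.007).

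Silent subunits (KCNF, KCNG, KCNS and KCNV) form no current alone and modify KCNB pores. Of 9 tested, 1 rose and 5 fell at RA day 21 (66.7%, beside 44.6% of all genes), 3 fell at BMP2 day 10 (33.3%, beside 36.3%) and 1 fell at BMP2 day 21 (11.1%, beside 47.1%), with medians of -1.82, -1.82 and -0.75. KCNG3 had 35.5 and 28.2 CPM in the untreated libraries, 10.7 and 12.1, 2.42 and 2.802, and 1.11 and 1.35 CPM at days 5, 10 and 21 of RA, and 2.78 and 3.32, 2.75 and 0.0894, and 0.862 and 0.504 CPM at those days of BMP2. Every treated library was below both untreated ones. Its differences from day 0 were -4.70 ± 1.01 (edgeR adjusted p = 0.0044) at RA day 21, -4.47 ± 1.00 (edgeR adjusted p = 0.0072, -8.45 without BMP2 day 10 replicate 1, -3.54 without BMP2 day 10 replicate 2) at BMP2 day 10 and -5.54 ± 1.07 (edgeR adjusted p = 0.0021) at BMP2 day 21. KCNG3 fell at RA day 10 (-3.61 ± 0.96, edgeR adjusted p = 0.023), a call lost without untreated day 0 replicate 1 or 2 (-3.43 and -3.77) or RA day 10 replicate 1 or 2 (-3.48 and -3.70). KCNG3 fell at BMP2 day 5 (-3.39 ± 0.95, edgeR adjusted p = 0.024), a call lost without untreated day 0 replicate 1 or 2 (-3.21 and -3.54) or BMP2 day 5 replicate 1 or 2 (-3.26 and -3.49).

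KCNG1 had 22.1 and 15.7 CPM in the untreated libraries, 19.6 and 16.99, 14.5 and 13.8, and 3.06 and 3.21 CPM at days 5, 10 and 21 of RA, and 16.8 and 20.7, 23.3 and 15.5, and 21.8 and 20.3 CPM at those days of BMP2. Only the RA day 21 libraries stood apart, at 3.06 and 3.21 CPM where the other 12 lay between 13.8 and 23.3 CPM. It fell at RA day 21 (-2.59 ± 0.26 (edgeR adjusted p = 0.00012)) and was lower there than at BMP2 day 21 (-2.74 ± 0.26 (edgeR adjusted p = 0.00077)). KCNG1 fell from RA day 10 to RA day 21 (-2.17 ± 0.26, edgeR adjusted p = 0.0051), a call lost without RA day 21 replicate 1 or 2 (-2.18 and -2.25).

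KCNS3 had 16.4 and 11.2 CPM in the untreated libraries, 13.6 and 17.8, 5.25 and 7.45, and 3.87 and 3.97 CPM at days 5, 10 and 21 of RA, and 0.799 and 1.26, 1.19 and 3.35, and 5.23 and 7.85 CPM at those days of BMP2. It was lowest at BMP2 days 5 and 10. The differences from day 0 were -3.74 ± 0.52 (edgeR adjusted p = 0.00098) at BMP2 day 5 and -2.61 ± 0.49 (edgeR adjusted p = 0.0031, -3.54 without BMP2 day 10 replicate 2) at BMP2 day 10, and RA exceeded BMP2 at day 5 by 3.93 ± 0.52 (edgeR adjusted p = 0.0024). KCNS3 fell at RA day 21 (-1.82 ± 0.48, edgeR adjusted p = 0.011), a call lost without untreated day 0 replicate 1 (-1.52) or RA day 21 replicate 1 or 2 (-1.81 and -1.85). KCNS3 rose from BMP2 day 5 to BMP2 day 21 (2.66 ± 0.50, edgeR adjusted p = 0.014), a call lost without BMP2 day 5 replicate 1 (2.38) or BMP2 day 21 replicate 2 (2.34). KCNV1 was the silent subunit that rose, with 0 and 0.0835 CPM untreated and 3.33 and 2.48 CPM at RA day 21 (5.92 ± 1.32 (edgeR adjusted p = 0.0051, 5.09 without untreated day 0 replicate 1, 10.38 without untreated day 0 replicate 2)). KCNV1 rose at RA day 10 (4.31 ± 1.26, edgeR adjusted p = 0.033), a call lost without untreated day 0 replicate 1 or 2 (3.47 and 8.76), RA day 10 replicate 2 (3.02) or RA day 21 replicate 1 or 2 (4.35 and 4.34) and standing at 5.00 without RA day 10 replicate 1. KCNV1 rose at BMP2 day 5 (3.69 ± 1.24, edgeR adjusted p = 0.049), a call lost in 10 of the 14 fits (2.52 to 8.14). KCNS1 and KCNF1 had their lowest means at RA day 10 and RA day 21, with 0.305 and 0.0894 CPM and 0.299 and 0.108 CPM, from 2.96 and 2.31 and from 2.19 and 2.45 CPM untreated. KCNS1 fell at RA day 10 (-3.75 ± 0.86, edgeR adjusted p = 0.012), a call lost without RA day 10 replicate 2 (-3.08) and standing at -4.82 without RA day 10 replicate 1. KCNS1 was lower with RA than with BMP2 at day 10 (-4.26 ± 0.87, edgeR adjusted p = 0.016), a call lost without RA day 10 replicate 2 (-3.63) and standing at -3.60 without BMP2 day 10 replicate 1 or -5.37 without RA day 10 replicate 1. KCNS1 fell at RA day 21 (-2.42 ± 0.79, edgeR adjusted p = 0.031), a call lost without untreated day 0 replicate 1 or 2 (-2.23 and -2.59) or RA day 21 replicate 1 or 2 (-3.15 and -1.95). KCNS1 was lower with RA than with BMP2 at day 5 (-3.09 ± 0.82, edgeR adjusted p = 0.037), a call lost in 8 of the 14 fits (-3.77 to -2.45). KCNF1 fell at RA day 21 (-3.51 ± 0.94, edgeR adjusted p = 0.013), a call lost without RA day 21 replicate 2 (-2.96) and standing at -4.41 without RA day 21 replicate 1.

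KCNMA1, the BK channel that opens to both voltage and calcium and relaxes smooth muscle, rose in all 6 comparisons with day 0, and all 6 calls held. It had 2.596 and 3.16 CPM in the untreated libraries, 15.6 and 9.85, 12.9 and 17.6, and 15.1 and 17.2 CPM at days 5, 10 and 21 of RA, and 54.5 and 34.9, 37.4 and 46.1, and 66.5 and 50.02 CPM at those days of BMP2. Each BMP2 library was above each RA library. The RA differences were 2.14 ± 0.31 (edgeR adjusted p = 0.0033), 2.40 ± 0.31 (edgeR adjusted p = 0.00098) and 2.49 ± 0.31 (edgeR adjusted p = 0.00028) at days 5, 10 and 21. The BMP2 differences were 3.95 ± 0.33 (edgeR adjusted p = 0.00015), 3.85 ± 0.33 (edgeR adjusted p = 0.00014) and 4.34 ± 0.34 (edgeR adjusted p = 5.1e-05). The agents differed on all 3 days. KCNMA1 was lower with RA than with BMP2 at day 5 (-1.81 ± 0.30, edgeR adjusted p = 0.0059), a call lost without RA day 5 replicate 2 (-1.52). KCNMA1 was lower with RA than with BMP2 at day 10 (-1.45 ± 0.30, edgeR adjusted p = 0.016), a call lost without RA day 10 replicate 1 or 2 (-1.25 and -1.71). KCNMA1 was lower with RA than with BMP2 at day 21 (-1.85 ± 0.30, edgeR adjusted p = 0.0063), a call lost without RA day 21 replicate 1 or 2 (-1.78 and -1.97). The smooth muscle markers were higher in the BMP2 libraries too, at 352 to 1306 CPM against 54.4 to 307 CPM in the RA libraries, and their part in the KCNMA1 result was not tested.

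Small-conductance channels, which calcium opens without voltage, diverged. KCNN3 had 4.14 and 3.06 CPM in the untreated libraries, 4.31 and 7.76, 10.5 and 6.94, and 28.2 and 27.2 CPM at days 5, 10 and 21 of RA, and 4.19 and 4.83, 3.81 and 1.18, and 7.06 and 7.33 CPM at those days of BMP2. RA day 21 stood above all other libraries (2.95 ± 0.51 (edgeR adjusted p = 0.0014)). KCNN3 was higher with RA than with BMP2 at day 21 (1.95 ± 0.49, edgeR adjusted p = 0.032), a call lost without RA day 21 replicate 1 or 2 (1.90 and 1.95) or BMP2 day 21 replicate 1 or 2 (1.92 and 1.95). KCNN3 was higher with RA than with BMP2 at day 10 (1.80 ± 0.49, edgeR adjusted p = 0.045), a call lost in 13 of the 14 fits (1.19 to 2.05) and standing at 2.88 without BMP2 day 10 replicate 1. KCNN1 was highest untreated, at 4.04 and 2.37 CPM. KCNN1 fell at BMP2 day 21 (-2.45 ± 0.73, edgeR adjusted p = 0.02), a call lost without untreated day 0 replicate 1 (-2.02) or BMP2 day 21 replicate 1 (-2.00) and standing at -3.09 without BMP2 day 21 replicate 2. KCNN1 fell at BMP2 day 5 (-2.41 ± 0.73, edgeR adjusted p = 0.033), a call lost in 6 of the 14 fits (-2.74 to -1.97). KCNN2 had 7.14 and 9.505 CPM in the untreated libraries, 2.73 and 1.77, 2.95 and 0.417, and 0.269 and 0.445 CPM at days 5, 10 and 21 of RA, and 2.09 and 2.66, 2.48 and 24.3, and 45.9 and 26.9 CPM at those days of BMP2. Its high libraries were both BMP2 day 21 libraries and BMP2 day 10 replicate 2. KCNN2 fell at RA day 21 (-4.53 ± 1.11, edgeR adjusted p = 0.0084), a call lost without RA day 21 replicate 1 (-4.23). KCNN2 was lower with RA than with BMP2 at day 21 (-6.66 ± 1.22, edgeR adjusted p = 0.0096), a call lost without RA day 21 replicate 1 or 2 (-6.37 and -7.09). KCNN2 rose from BMP2 day 5 to BMP2 day 21 (3.94 ± 1.06, edgeR adjusted p = 0.036), a call lost in 10 of the 14 fits (3.50 to 4.26). At BMP2 day 21 KCNN2 differed from day 0 by 2.13 ± 0.97 (edgeR adjusted p = 0.097), which did not pass. KCNT2, a sodium-activated channel, had 15.01 and 10.7 CPM in the untreated libraries, 14.3 and 21.7, 12.9 and 17.6, and 61.9 and 57.2 CPM at days 5, 10 and 21 of RA, and 8.85 and 6.89, 4.49 and 11.96, and 17.1 and 12.6 CPM at those days of BMP2. Against day 0 it passed only at RA day 21 (2.21 ± 0.43 (edgeR adjusted p = 0.0026)). KCNT2 was higher with RA than with BMP2 at day 21 (2.01 ± 0.43, edgeR adjusted p = 0.017), a call lost without RA day 21 replicate 1 or 2 (1.93 and 2.04) or BMP2 day 21 replicate 1 or 2 (2.25 and 1.78). KCNT2 rose from RA day 10 to RA day 21 (1.96 ± 0.43, edgeR adjusted p = 0.026), a call lost without RA day 10 replicate 1 or 2 (1.71 and 2.17) or RA day 21 replicate 1 or 2 (1.87 and 1.98).

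**Figure D3:**
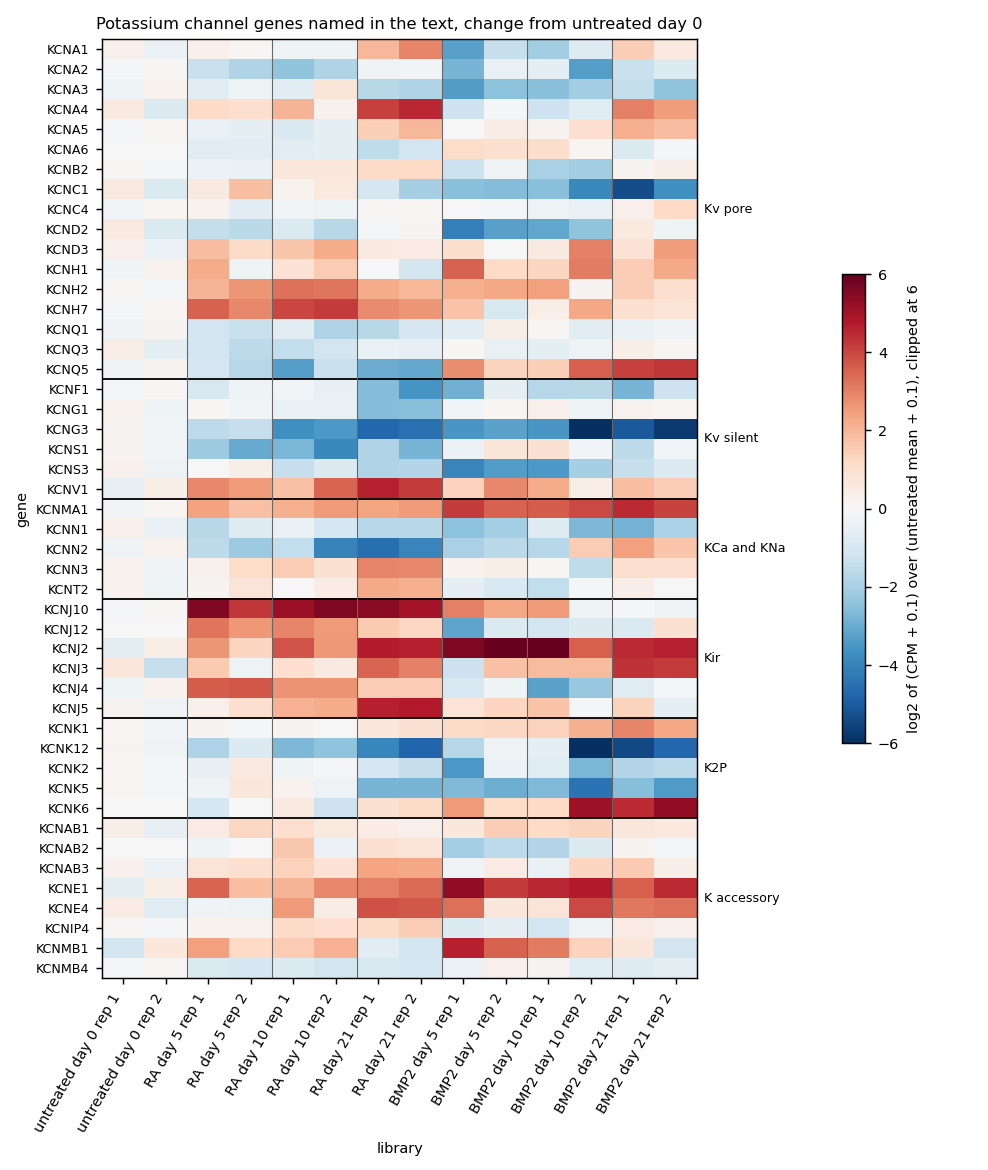
Potassium channel genes named under the set conditions (47 rows), in each of the 14 libraries, as log2 of CPM + 0.1 over the untreated mean, with colour limits at 6. Genes named in the text only for their values, such as KCNJ9 and KCNK17, are not drawn. KCNMA1, KCNE1 and KCNJ2 are red in the treated libraries, and KCNG3 and KCNK12 are blue at day 21 of both agents.

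Inward rectifiers pass potassium inward more easily than outward and hold the resting potential. Of the 15 members, 3, 5 and 6 rose and none fell at RA days 5, 10 and 21 (medians 1.20, 2.56 and 1.43), and 4, 3 and 3 rose at BMP2 days 5, 10 and 21, with 1 fallen at day 10 (medians 0.77, 1.40 and 0.47). The shares of all genes that passed were 8.31%, 24.0% and 44.6% at the RA days and 29.2%, 36.3% and 47.1% at the BMP2 days. With rectifiers that lack a count in a group set at their bound, the medians were 0.87, 2.34 and 1.43, and 0.77, 1.40 and 0.30. KCNJ2, the pore that clamps the resting potential of heart and skeletal muscle, had 0.203 and 0.501 CPM in the untreated libraries, 2.73 and 1.02, 6.17 and 2.65, and 11.8 and 11.2 CPM at days 5, 10 and 21 of RA, and 21.95 and 46.99, 43.1 and 5.41, and 10.02 and 11.1 CPM at those days of BMP2. BMP2 day 5 and BMP2 day 10 replicate 1 were highest, and day 21 of both agents lay between 10.0 and 11.8 CPM. It rose at RA day 21 (4.99 ± 1.01 (edgeR adjusted p = 0.0031, 5.81 without untreated day 0 replicate 2)). With BMP2 it rose by 6.57 ± 1.08 (edgeR adjusted p = 0.0021, 5.96 without BMP2 day 5 replicate 2, 7.39 without untreated day 0 replicate 2) at day 5, 6.07 ± 1.06 (edgeR adjusted p = 0.0022, 3.89 without BMP2 day 10 replicate 1, 6.88 without BMP2 day 10 replicate 2, 6.88 without untreated day 0 replicate 2) at day 10 and 4.87 ± 1.01 (edgeR adjusted p = 0.0031, 5.68 without untreated day 0 replicate 2) at day 21. KCNJ2 rose at RA day 10 (3.60 ± 0.96, edgeR adjusted p = 0.023), a call lost without untreated day 0 replicate 1 or 2 (3.13 and 4.42) or RA day 10 replicate 1 (2.90). KCNJ2 was lower with RA than with BMP2 at day 5 (-4.21 ± 0.95, edgeR adjusted p = 0.02), a call lost without RA day 5 replicate 1 or 2 (-5.07 and -3.66) or BMP2 day 5 replicate 2 (-3.57).

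KCNJ10, the potassium-buffering pore of glia, had 0.162 and 0.195 CPM in the untreated libraries, 12.96 and 5.34, 9.67 and 13.5, and 11.8 and 8.798 CPM at days 5, 10 and 21 of RA, and 2.13 and 1.29, 1.56 and 0.134, and 0.164 and 0.126 CPM at those days of BMP2. All 6 RA libraries exceeded all others. It rose by 5.99 ± 0.98 (edgeR adjusted p = 0.0028) at RA day 10 and 5.82 ± 0.97 (edgeR adjusted p = 0.0012) at RA day 21. KCNJ10 rose at RA day 5 (5.65 ± 0.97, edgeR adjusted p = 0.0076), a call lost without untreated day 0 replicate 1 or 2 (5.54 and 5.80) and standing at 4.88 without RA day 5 replicate 1. KCNJ10 rose at BMP2 day 5 (3.23 ± 0.90, edgeR adjusted p = 0.023), a call lost without untreated day 0 replicate 1 or 2 (3.12 and 3.38) or BMP2 day 5 replicate 1 (2.83). KCNJ10 was higher with RA than with BMP2 at day 10 (3.75 ± 0.86, edgeR adjusted p = 0.024), a call lost without RA day 10 replicate 1 or 2 (3.95 and 3.47) and standing at 6.41 without BMP2 day 10 replicate 1 or 2.89 without BMP2 day 10 replicate 2. KCNJ10 was higher with RA than with BMP2 at day 21 (6.13 ± 1.00, edgeR adjusted p = 0.0063), a call lost without BMP2 day 21 replicate 2 (5.93). KCNJ10 fell from BMP2 day 5 to BMP2 day 21 (-3.54 ± 0.93, edgeR adjusted p = 0.034), a call lost in 8 of the 14 fits (-3.88 to -3.13). The summed glial markers were lower in all RA libraries than in the untreated ones (8.50 to 34.0 CPM against 86.8 to 100.3 CPM).

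KCNJ4, a strong rectifier of forebrain neurons, had 0.669 and 0.974 CPM in the untreated libraries, 11.4 and 11.99, 5.79 and 5.78, and 2.51 and 2.55 CPM at days 5, 10 and 21 of RA, and 0.381 and 0.6603, 0 and 0.0894, and 0.452 and 0.777 CPM at those days of BMP2. RA day 5 was highest, and BMP2 day 10 held almost no counts. RA exceeded BMP2 by 4.48 ± 0.69 (edgeR adjusted p = 0.0042) at day 5 and 7.06 ± 0.85 (edgeR adjusted p = 0.0022, 5.98 without BMP2 day 10 replicate 1, 11.42 without BMP2 day 10 replicate 2) at day 10. BMP2 day 10 fell below day 0, with a difference of -4.25 ± 0.82 (edgeR adjusted p = 0.0034, -3.18 without BMP2 day 10 replicate 1, -8.61 without BMP2 day 10 replicate 2). KCNJ4 rose at RA day 5 (3.82 ± 0.67, edgeR adjusted p = 0.0081), a call lost without untreated day 0 replicate 1 or 2 (3.59 and 4.12). KCNJ4 rose at RA day 10 (2.81 ± 0.64, edgeR adjusted p = 0.012), a call lost without untreated day 0 replicate 1 or 2 (2.57 and 3.11). KCNJ12, another strong rectifier, had 6.41 and 6.57 CPM in the untreated libraries, 61.4 and 40.2, 50.03 and 38.6, and 19.4 and 15.6 CPM at days 5, 10 and 21 of RA, and 0.647 and 3.57, 2.98 and 3.64, and 3.53 and 12.4 CPM at those days of BMP2. It has a near-identical copy, KCNJ18, so its counts are uncertain. RA exceeded BMP2 at day 5 by 4.58 ± 0.78 (edgeR adjusted p = 0.0064, 3.83 without BMP2 day 5 replicate 1, 6.28 without BMP2 day 5 replicate 2). KCNJ12 rose at RA day 10 (2.77 ± 0.71, edgeR adjusted p = 0.02), a call lost without untreated day 0 replicate 1 or 2 (2.75 and 2.79) or RA day 10 replicate 1 (2.60). KCNJ12 was higher with RA than with BMP2 at day 10 (3.74 ± 0.75, edgeR adjusted p = 0.015), a call lost without RA day 10 replicate 1 (3.54). KCNJ12 rose at RA day 5 (2.97 ± 0.72, edgeR adjusted p = 0.034), a call lost in 6 of the 14 fits (2.63 to 3.26).

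KCNJ5 and KCNJ3 together form a channel that acetylcholine opens in the atrium through G proteins. KCNJ5 had 0.284 and 0.195 CPM in the untreated libraries, 0.325 and 0.583, 1.33 and 1.49, and 8.46 and 9.03 CPM at days 5, 10 and 21 of RA, and 0.495 and 0.723, 1.03 and 0.224, and 0.759 and 0.126 CPM at those days of BMP2. It rose at RA day 21 (5.19 ± 0.92 (edgeR adjusted p = 0.0016)). KCNJ5 was higher with RA than with BMP2 at day 21 (4.30 ± 0.88, edgeR adjusted p = 0.015), a call lost without RA day 21 replicate 1 or 2 (4.32 and 4.23) or BMP2 day 21 replicate 2 (3.50) and standing at 6.10 without BMP2 day 21 replicate 1. KCNJ3 was at 3.68 and 2.6 CPM at RA day 21 and 6.61 and 6.07 CPM at BMP2 day 21, from 0.446 and 0.0278 untreated. KCNJ3 rose at BMP2 day 21 (4.78 ± 1.41, edgeR adjusted p = 0.018), a call lost without untreated day 0 replicate 2 (3.82) and standing at 7.72 without untreated day 0 replicate 1. KCNJ3 rose at RA day 21 (3.77 ± 1.35, edgeR adjusted p = 0.045), a call lost in 7 of the 14 fits (2.81 to 3.97) and standing at 6.71 without untreated day 0 replicate 1. KCNJ9, of the same G-protein-gated group, stood at 0.0811 and 0 CPM untreated and 0.896 and 0.499 CPM at RA day 21. KCNJ9 rose at RA day 21 (4.15 ± 1.30, edgeR adjusted p = 0.032), a call lost in 7 of the 14 fits (3.07 to 4.48). At day 21 KCNJ9 also passed between the agents, where BMP2 had no count, a call lost without any 1 of the 4 libraries compared.

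KCNJ15 and KCNJ16 had no count in the untreated libraries and reached 1.21 and 0.597 CPM at most. KCNJ15 passed at RA day 10 and at BMP2 days 5, 10 and 21, and KCNJ16 at RA day 21 and BMP2 days 5 and 10. Each of these calls was lost without untreated replicate 2, and all but that of KCNJ15 at BMP2 day 10 also without untreated replicate 1. KCNJ15 was also higher with BMP2 than with RA at day 21, where RA had no count, a call lost in 10 of the 14 fits, any 1 of the 4 libraries compared included.

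Leak channels of the KCNK family let potassium out at rest and answer to pH, stretch and lipids. Of 11 tested, 1 rose and 4 fell at RA day 21 (45.5%, beside 44.6% of all genes) and 2 rose and 4 fell at BMP2 day 21 (54.5%, beside 47.1%), with medians of -1.25 and -1.72. KCNK5, an alkaline-activated member, had 35.5 and 29.7 CPM in the untreated libraries, 28.2 and 50.9, 37.4 and 26.6, and 4.63 and 4.63 CPM at days 5, 10 and 21 of RA, and 5.06 and 4.17, 5.14 and 1.43, and 5.38 and 2.96 CPM at those days of BMP2. Every BMP2 library and the RA day 21 libraries were low, and the RA libraries of days 5 and 10 spanned the untreated range. Its differences from day 0 were -2.81 ± 0.55 (edgeR adjusted p = 0.0025) at RA day 21, and -2.82 ± 0.55 (edgeR adjusted p = 0.0047), -3.30 ± 0.56 (edgeR adjusted p = 0.0019, -4.51 without BMP2 day 10 replicate 1, -2.66 without BMP2 day 10 replicate 2) and -2.97 ± 0.55 (edgeR adjusted p = 0.0018) at BMP2 days 5, 10 and 21. RA exceeded BMP2 at day 10 by 3.28 ± 0.56 (edgeR adjusted p = 0.0079, 4.48 without BMP2 day 10 replicate 1, 2.64 without BMP2 day 10 replicate 2). KCNK5 was higher with RA than with BMP2 at day 5 (3.10 ± 0.55, edgeR adjusted p = 0.0078), a call lost without RA day 5 replicate 2 (2.61) or BMP2 day 5 replicate 1 or 2 (3.25 and 2.96). KCNK5 fell from RA day 10 to RA day 21 (-2.79 ± 0.55, edgeR adjusted p = 0.02), a call lost without RA day 10 replicate 1 or 2 (-2.56 and -3.05) or RA day 21 replicate 1 or 2 (-2.82 and -2.83).

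KCNK1, a weakly conducting widespread member, had 11.6 and 9.55 CPM in the untreated libraries, 11.7 and 10.01, 11.8 and 10.9, and 16.6 and 20.2 CPM at days 5, 10 and 21 of RA, and 23.6 and 25.2, 27.6 and 47.03, and 81.3 and 52.4 CPM at those days of BMP2. BMP2 libraries lay above RA libraries on every day. It rose by 1.82 ± 0.29 (edgeR adjusted p = 0.0013) at BMP2 day 10 and 2.66 ± 0.30 (edgeR adjusted p = 0.00015) at BMP2 day 21. KCNK1 rose at BMP2 day 5 (1.21 ± 0.28, edgeR adjusted p = 0.011), a call lost without untreated day 0 replicate 2 (1.07). KCNK1 was lower with RA than with BMP2 at day 10 (-1.72 ± 0.29, edgeR adjusted p = 0.0071), a call lost without RA day 10 replicate 2 (-1.67). KCNK1 was lower with RA than with BMP2 at day 21 (-1.86 ± 0.29, edgeR adjusted p = 0.0048), a call lost without RA day 21 replicate 1 (-1.74). KCNK1 rose at RA day 21 (0.80 ± 0.28, edgeR adjusted p = 0.04), a call lost in 10 of the 14 fits (0.64 to 0.95). KCNK1 was lower with RA than with BMP2 at day 5 (-1.17 ± 0.28, edgeR adjusted p = 0.026), a call lost without RA day 5 replicate 1 or 2 (-1.28 and -1.07) or BMP2 day 5 replicate 1 or 2 (-1.21 and -1.13). KCNK1 rose from BMP2 day 5 to BMP2 day 21 (1.45 ± 0.28, edgeR adjusted p = 0.015), a call lost without BMP2 day 5 replicate 1 or 2 (1.41 and 1.48) or BMP2 day 21 replicate 1 or 2 (1.10 and 1.73). KCNK6 had 1.26 and 1.28 CPM in the untreated libraries, 0.5696 and 1.28, 1.87 and 0.477, and 2.47 and 2.897 CPM at days 5, 10 and 21 of RA, and 7.82 and 2.88, 2.998 and 46.96, and 29.9 and 54.9 CPM at those days of BMP2. Of the BMP2 day 10 libraries, replicate 2 was in the range of day 21 and replicate 1 in that of day 5. KCNK6 rose at BMP2 day 10 (4.30 ± 1.15, edgeR adjusted p = 0.016), a call lost without untreated day 0 replicate 1 or 2 (4.28 and 4.31) or BMP2 day 10 replicate 2 (1.24) and standing at 5.21 without BMP2 day 10 replicate 1. KCNK6 rose at BMP2 day 21 (5.06 ± 1.19, edgeR adjusted p = 0.0063), a call lost without untreated day 0 replicate 2 (5.07). KCNK6 was lower with RA than with BMP2 at day 10 (-4.42 ± 1.16, edgeR adjusted p = 0.039), a call lost in 11 of the 14 fits (-5.70 to -1.37) and standing at -5.34 without BMP2 day 10 replicate 1. KCNK6 was lower with RA than with BMP2 at day 21 (-3.98 ± 1.13, edgeR adjusted p = 0.047), a call lost in 10 of the 14 fits (-4.35 to -3.50). KCNK12, of which most of the span lies in another coding gene, went from 26.8 and 20.6 CPM untreated to 1.46 and 0.781 CPM at RA day 21 and 0.452 and 0.798 at BMP2 day 21. KCNK12 fell at RA day 21 (-4.40 ± 1.43, edgeR adjusted p = 0.03), a call lost without untreated day 0 replicate 1 or 2 (-4.19 and -4.57) or RA day 21 replicate 1 or 2 (-4.93 and -4.03). KCNK12 fell at BMP2 day 21 (-5.24 ± 1.501, edgeR adjusted p = 0.016), a call lost without BMP2 day 21 replicate 1 or 2 (-4.89 and -5.69). KCNK2, the stretch-sensitive TREK-1 channel, ranged from 0.419 to 8.10 CPM and did not pass in any of the 11 comparisons. KCNK17, next to KCNK5 on chromosome 6, had 0.771 and 0.738 CPM untreated and no count at day 21 of either agent or at BMP2 day 10. It passed in these 3 comparisons, and each call was lost without any 1 of the 4 libraries compared.

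Accessory subunits of potassium channels bind the pores and shift their gating or their number. Of 16 tested, 4 rose and 1 fell at RA day 21 (31.2%, beside 44.6% of all genes) and 2 rose and 1 fell at BMP2 day 21 (18.8%, beside 47.1%), with medians of 0.40 and 0.34. KCNE1, which slows the KCNQ1 pore to give the cardiac delayed current, had 0.162 and 0.3896 CPM in the untreated libraries, 4.11 and 1.196, 1.45 and 2.68, and 2.99 and 3.88 CPM at days 5, 10 and 21 of RA, and 14.99 and 6.85, 8.43 and 9.97, and 4.45 and 8.19 CPM at those days of BMP2. All treated libraries exceeded both untreated ones. It rose by 3.60 ± 0.72 (edgeR adjusted p = 0.003, 4.39 without untreated day 0 replicate 2) at RA day 21. With BMP2 it rose by 5.27 ± 0.77 (edgeR adjusted p = 0.0012, 4.60 without BMP2 day 5 replicate 1, 6.05 without untreated day 0 replicate 2) at day 5, 5.02 ± 0.76 (edgeR adjusted p = 0.0011, 5.80 without untreated day 0 replicate 2) at day 10 and 4.48 ± 0.75 (edgeR adjusted p = 0.001, 5.26 without untreated day 0 replicate 2) at day 21. KCNE1 rose at RA day 5 (3.22 ± 0.72, edgeR adjusted p = 0.024), a call lost without untreated day 0 replicate 1 or 2 (2.76 and 4.01) or RA day 5 replicate 1 (2.08) and standing at 3.88 without RA day 5 replicate 2. KCNE1 rose at RA day 10 (2.87 ± 0.71, edgeR adjusted p = 0.017), a call lost without untreated day 0 replicate 1 or 2 (2.40 and 3.65) or RA day 10 replicate 2 (2.38). The pore it pairs with, KCNQ1, did not pass in any comparison.

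KCNMB4, the neuronal subunit of the BK channel, went from 25.7 and 28.97 CPM untreated to 13.98 and 13.1 CPM at RA day 21, while KCNMA1 rose. KCNMB4 fell at RA day 21 (-1.02 ± 0.30, edgeR adjusted p = 0.02), a call lost without untreated day 0 replicate 1 or 2 (-1.09 and -0.93) or RA day 21 replicate 1 or 2 (-1.07 and -0.98). KCNMB4 fell at RA day 10 (-0.96 ± 0.30, edgeR adjusted p = 0.043), a call lost in 10 of the 14 fits (-1.08 to -0.80). KCNMB1, the smooth muscle subunit of BK, was at 5.33 and 2.33 CPM at BMP2 day 5 and at or under 1.74 CPM in every other library. Most of its span lies inside KCNIP1, so its counts are uncertain. KCNMB1 rose at BMP2 day 5 (5.00 ± 1.59, edgeR adjusted p = 0.04), a call lost in 10 of the 14 fits (4.09 to 10.77). KCNIP4, a calcium-binding partner of KCND pores, had 3.53 and 3.26 CPM untreated and 7.61 and 9.71 CPM at RA day 21. KCNIP4 rose at RA day 21 (1.35 ± 0.34, edgeR adjusted p = 0.0088), a call lost without untreated day 0 replicate 2 (1.30) or RA day 21 replicate 2 (1.15). KCNIP4 was higher with RA than with BMP2 at day 10 (1.80 ± 0.34, edgeR adjusted p = 0.012), a call lost without RA day 10 replicate 1 (1.72). KCNIP4 rose at RA day 10 (1.12 ± 0.33, edgeR adjusted p = 0.036), a call lost in 7 of the 14 fits (1.06 to 1.21). KCNAB3 had 3.15 and 3.099 CPM at RA day 21 and KCNE4 had 2.18 and 2.01 CPM there, from 0.669 and 0.404 and from 0.122 and 0 CPM untreated. KCNAB3 rose at RA day 21 (2.54 ± 0.70, edgeR adjusted p = 0.014), a call lost without untreated day 0 replicate 2 (2.22) or RA day 21 replicate 1 or 2 (2.52 and 2.54). KCNE4 rose at RA day 21 (5.19 ± 1.72, edgeR adjusted p = 0.033), a call lost without untreated day 0 replicate 2 (4.08) or RA day 21 replicate 1 or 2 (5.10 and 5.21) and standing at 9.95 without untreated day 0 replicate 1. KCNE4 rose at BMP2 day 21 (4.63 ± 1.70, edgeR adjusted p = 0.046), a call lost in 7 of the 14 fits (3.52 to 4.71) and standing at 9.39 without untreated day 0 replicate 1. KCNAB2, a beta subunit of KCNA pores, was lowest at BMP2 day 5, with 0.533 and 0.7704 CPM from 2.47 and 2.45 untreated. KCNAB2 fell at BMP2 day 5 (-1.91 ± 0.61, edgeR adjusted p = 0.04), a call lost in 10 of the 14 fits (-2.17 to -1.67). KCNAB2 was higher with RA than with BMP2 at day 10 (2.28 ± 0.61, edgeR adjusted p = 0.042), a call lost in 12 of the 14 fits (0.91 to 2.28) and standing at 2.88 without BMP2 day 10 replicate 2 or 2.96 without RA day 10 replicate 2. KCNAB1 ranged from 1.24 to 5.14 CPM. KCNAB1 rose at BMP2 day 10 (1.32 ± 0.44, edgeR adjusted p = 0.038), a call lost in 6 of the 14 fits (0.93 to 1.40).

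**Figure D4:**
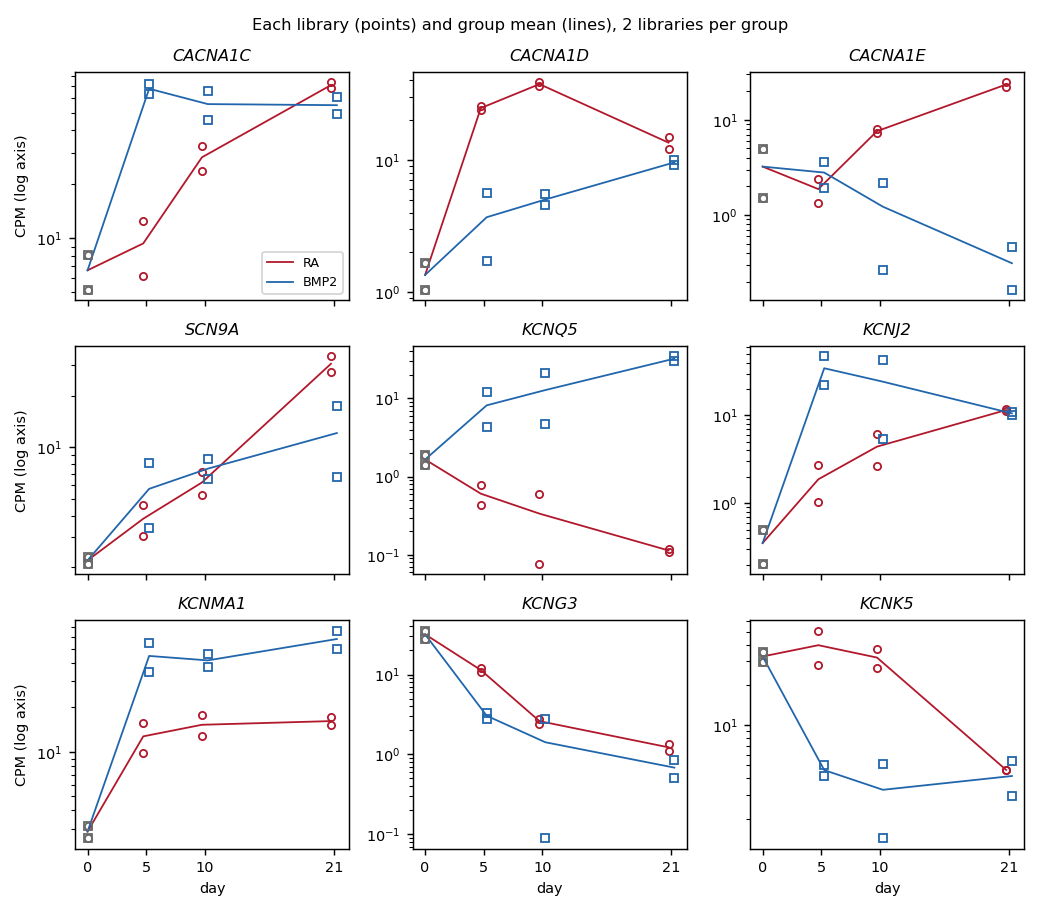
CPM (log axes) against day for 9 channel genes, with each library as a point, lines through the means of 2 libraries, red for RA and blue for BMP2. CACNA1C reached its late level at day 5 with BMP2 (63.8 and 71.99 CPM) and at day 21 with RA (73.7 and 68.5 CPM), while CACNA1E and KCNQ5 part in opposite directions.

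Seen across classes, 3 genes passed in opposite directions against day 0 and were also called between the agents: KCNJ4 at day 10, and KCNQ5 and CACNA1E at day 21. A call between the agents largely follows from opposite calls against the same day 0 group. The direct test held without any 1 library for all 3. For KCNJ4, KCNQ5 and CACNA1E it gave 7.06 ± 0.85 (5.98 without BMP2 day 10 replicate 1, 11.42 without BMP2 day 10 replicate 2), -8.13 ± 1.13 and 6.22 ± 1.05 (7.12 without BMP2 day 21 replicate 2). On only the 4 libraries compared, edgeR gave adjusted p = 0.2 for KCNJ4, which ends that call, and 0.0003 and 0.0014 for KCNQ5 and CACNA1E. Other direct differences that held favoured RA for KCNS3, CACNA1D, KCNJ12 and KCNJ4 at day 5 and for CACNA1D, KCNK5 and KCNB2 at day 10. They favoured BMP2 for CACNA1C at day 5 and KCNG1 at day 21.

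**Figure D5:**
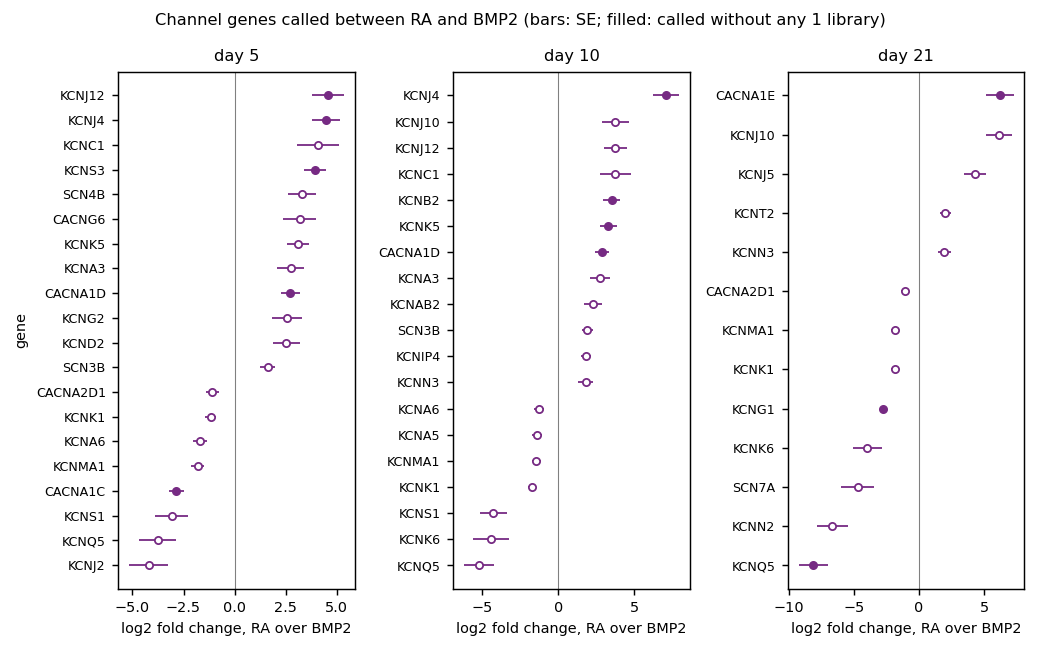
Log2 fold change of RA over BMP2, with SE bars, for channel genes called at days 5, 10 and 21; filled points are calls that held without any 1 library. KCNJ9, KCNRG and KCNJ15 are not drawn at day 21, where a group has no count. KCNJ4 stands at 7.06 at day 10, and KCNQ5 at -8.13 and CACNA1E at 6.22 at day 21.

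Position gave another view of the members. In RefSeq order, 40 of the 133 lie in 17 groups with at most 3 coding genes between neighbours. On chromosome 2, SCN3A stands next to SCN2A, and SCN1A, SCN9A and SCN7A form a second group. The day 21 means were 2.55 and 14.3 CPM with RA and 3.88 and 16.4 CPM with BMP2 for SCN3A and SCN2A, and 0.332, 30.6 and 0.0852 CPM with RA and 0.0418, 12.1 and 2.31 CPM with BMP2 for SCN1A, SCN9A and SCN7A. SCN9A and SCN7A thus differed in which agent gave the higher mean. On chromosome 17 KCNJ16 stands next to KCNJ2, and on chromosome 12 KCNA6, KCNA1 and KCNA5 follow each other. KCNA6 fell at RA day 21 while KCNA1 and KCNA5 rose. Neighbours were not tested as groups.

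Other channel and calcium-handling genes were taken from lists chosen by role. Their counts stand beside 44.6% of all genes called at RA day 21, 29.2% at BMP2 day 5 and 47.1% at BMP2 day 21. Of 14 tested genes of other voltage-sensing or cation channels, 5 rose and 2 fell at RA day 21 (median 0.30) and 4 rose and 3 fell at BMP2 day 21 (median 0.30). HCN4, the pacemaker channel of the sinus node, had 28.6 CPM on average untreated, 2.19 at RA day 21 and 11.7 at BMP2 day 21, and its RA day 21 difference of -3.70 ± 0.45 held. Of 28 partners and anchors, 8 rose and 6 fell at RA day 21 and 8 rose and 9 fell at BMP2 day 21, with medians of 0.47 and 0.67. DPP10, a subunit of KCND channels, rose at day 21 of RA (2.07 ± 0.28) and of BMP2 (2.44 ± 0.28), and ANK3, the anchor of the axon initial segment, at BMP2 day 21 (1.78 ± 0.39). FGF12 and FGF13, which bind sodium pores, fell at BMP2 day 21, with -3.00 ± 0.41 and -3.19 ± 0.48. These calls held.

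Sodium pump subunits showed 2 higher and 3 lower of 6 at RA day 21 and 1 and 3 at BMP2 day 21. ATP1B1 rose under both agents, by 1.54 ± 0.23 at RA day 21 and 1.97 ± 0.24 at BMP2 day 21. Of 23 genes for release and uptake of intracellular calcium, 6 rose and 3 fell at BMP2 day 5 and 5 rose and 5 fell at BMP2 day 21, with medians of -0.38 and -0.33. The exchanger SLC8A1, which clears calcium from muscle and neurons, rose from 3.72 CPM to 106 CPM on average at BMP2 day 5 (4.82 ± 0.63) and to 60.1 CPM at RA day 21 (4.01 ± 0.61). JPH2, which joins surface and store membranes in muscle, rose by 6.06 ± 0.92 at BMP2 day 5, and CASQ2, a store calcium buffer of heart, by 7.94 ± 1.26. ITPR1 rose by 4.38 ± 0.92 at BMP2 day 21. These calls held as well.

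A further 48 members met none of the conditions for naming a gene, and those of them given above (CACNG8, KCNJ9, KCNJ15, KCNJ16, KCNK17, KCNRG and KCNIP1, apart from those listed as not tested) were picked after their values were seen. Among the 48, KCNJ8, the pore of the vascular ATP-sensitive channel, reached 19.8 CPM, CACNG8 16.5 CPM, the acid-sensitive leak channel KCNK3 12.4 CPM, and the other 45 at most 7.79 CPM in any library. KCNJ8 and KCNK3, also picked for these levels, did not pass in any comparison. In each group between 67 and 77 of the 133 members had a mean of at least 1 CPM. A span that lies by at least 50% inside other coding genes, where a read may be assigned to the wrong one of the overlapping genes, was found for 12 members. These are KCNE5, KCNMB1, KCNMB2, KCNRG, KCNK12, KCNJ13, KCNA6, KCNC1, KCNH1, KCNS2, KCNV2 and CACNB4, and their values are uncertain.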

How the data were processed

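RNA sequencing counts and RPKM values of 14 libraries in 7 groups of 2 were used. Per the submitters' processing notes, the authors used STAR, featureCounts and DESeq2 with the hg19 build, without versions. The deposited counts are whole numbers per gene, not normalized, and sum to 45773278 to 75754396 per library. They are not fragment counts as such, since 66.0 to 73.5% of the counts from 1 to 19 were even, and no source used here says whether intronic reads were included. The deposited RPKM values are per kilobase of a length that was within 1% of the whole gene span for 74 of 94 channel genes with enough counts to tell, and they served only to give the levels of 3 sodium pores.

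Differences were tested on the counts with edgeR 4.0.16 in R 4.3.3 (quasi-likelihood F test, filterByExpr with a minimum count of 10, TMM factors, a mean per group, all 14 libraries, 7 residual degrees of freedom). Benjamini-Hochberg adjustment was over 19142 genes, which held 99.99% of the counts. SE is the log2 fold change over the square root of F. A gene without a count in a group has no fold: bounds use 3 counts over that group. Counting intervals and bounds cover counting error only. The common biological coefficient of variation was 0.368. On counts simulated for RA day 21 against untreated over 19142 genes, with 50 genes per fold size, the test recovered 2%, 10%, 66% and 76% of 1.5-, 2-, 4- and 8-fold changes with 3 false calls. The changed genes all had a mean over 1 CPM and the rest stayed unchanged, while 44.6% of all genes passed in the real comparison. Recovery at such a share of changed genes, or for genes under 1 CPM, was not simulated.

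The members and gene lists were chosen with earlier results of these data known. Genes were named where they were sodium or calcium alpha1 pores or sodium beta subunits, were among the 3 largest called changes of a class and direction with at least 1 CPM, reached 20 CPM in a library, or were on a short list of well-studied channels. Some genes that enter the fits and the counts are not reported here by name. Alternatives were DESeq2 1.42.0, DESeq2 size factors (RLE) in edgeR, no filter, a filter of 1 CPM in 2 libraries, a replicate block, only the 4 libraries compared, leaving out each library, and leaving out both BMP2 day 10 libraries. Replicate numbers do not pair the libraries by label. Promoter sequences and gene order are from RefSeq on GRCh38.p14. Tables and figures were made with Python 3.11.15, pandas 2.3.3, NumPy 2.4.6 and matplotlib 3.10.9.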

Additional observations from a re-analysis of the deposited data

Results flagged for a closer look

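The 3 channel genes KCNJ4, KCNQ5 and CACNA1E moved to opposite sides of the untreated cells under the agents, and the direct test between the agents passed for each. They were picked for opposite calls against the same day 0 group. A pass between the agents, and libraries on separate sides, largely follow from that choice and are not separate support. KCNJ4 was higher with RA than with BMP2 at day 10 by 7.06 ± 0.85 on the log2 scale (edgeR adjusted p = 0.0022), with 5.79 and 5.78 CPM in the RA libraries and 0 and 0.0894 CPM in the BMP2 libraries. KCNQ5 was lower with RA at day 21, at -8.13 ± 1.13 (edgeR adjusted p = 0.0031), with 0.120 and 0.108 CPM against 30.2 and 34.5 CPM. CACNA1E was higher with RA at day 21 by 6.22 ± 1.05 (edgeR adjusted p = 0.0072), with 24.7 and 22.1 CPM against 0.164 and 0.462 CPM. In each case 2 of 2 RA libraries lay on one side of both BMP2 libraries. Each of the 3 contrasts also passed without any 1 library. Fitted by edgeR on only the 4 libraries compared, KCNJ4 no longer passed (7.04 ± 1.37, adjusted p = 0.2), while KCNQ5 (-8.13 ± 0.24, adjusted p = 0.0003) and CACNA1E (6.22 ± 0.44, adjusted p = 0.0014) did. The changes from untreated cells held less firmly: the rise of KCNJ4 at RA day 10 was lost without either untreated library, and the fall of KCNQ5 at RA day 21 without either RA day 21 library. The rise of CACNA1E at RA day 21 was lost without either RA day 21 library or untreated replicate 2, and its fall at BMP2 day 21 without BMP2 day 21 replicate 1 or untreated replicate 1.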

How the results depend on the processing

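RLE factors and a filter of 1 CPM in 2 libraries changed none of the 11 counts of called channel genes by more than 1.5 times. RLE moved the median of all genes by -0.0612 to -0.0046 (log2). Of 410 named values, 405 kept direction and side of the threshold under RLE, 3 lost the call, 2 gained it and 0 changed sign. With the replicate block 374 of the 410 kept both, 33 lost the call, 3 gained it and 0 changed sign. Of 315 such values outside BMP2 day 10, leaving out both BMP2 day 10 libraries kept 218, lost 0 calls, gained 97 and changed 0 signs. With DESeq2 the counts were 24 at RA day 5 (13 with edgeR), 46 at BMP2 day 5 (30), 41, 43 and 27 between the agents at days 5, 10 and 21 (20, 19 and 17), 27 within RA (10) and 36 within BMP2 (14). Without a low-count filter they were 16 within RA and 23 within BMP2. With only the 4 libraries compared they were 23 at RA day 5, 5 at BMP2 day 10 (37 with all libraries), 32 between the agents at day 21, 44 within RA and 23 within BMP2. Between the agents at day 10 that fit gave 0 calls, with 30 members at an unadjusted edgeR p under 0.05. Shares of all genes are not given here. Without both BMP2 day 10 libraries (r = 0.909), the counts were 21 at RA day 5, 38 and 26 between the agents at days 5 and 21, 27 within RA and 37 within BMP2.

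Leaving out 1 library gave 2 to 21, 7 to 42 and 23 to 57 calls at RA days 5, 10 and 21, 12 to 40, 18 to 38 and 26 to 49 at BMP2 days 5, 10 and 21, 5 to 38, 8 to 30 and 4 to 26 between the agents, 0 to 27 within RA and 0 to 36 within BMP2. Leaving out 1 library of the groups compared lowered the count by over 1.5 times, with these exceptions: no single library did so for BMP2 day 21 against untreated cells, nor did the BMP2 library left out for BMP2 days 5 and 10 against untreated cells and between the agents at day 10, nor untreated replicate 1 for RA day 21. Either RA day 21 library lowered RA day 5 to 8. The count within BMP2 was 6 to 9 also without a library of RA day 5, RA day 21 or the untreated cells. Leaving out either BMP2 day 10 library raised RA days 5 and 10, the agents at day 5, and the changes within RA and BMP2 by over 1.5 times, and replicate 1 did so between the agents at days 10 and 21. The 0 within RA came without RA day 21 replicate 2 (18 members at an unadjusted p under 0.05, edgeR), and the 0 within BMP2 without BMP2 day 5 replicate 1 (35 members). A lone library was assumed to vary like the other groups. Over 5740 such values of named genes, 4655 were the same, 773 lost a call, 309 gained one and 3 changed sign. These were CACNA2D2 and KCNK12 between the agents at day 10, at 3.21 and 4.87 without BMP2 day 10 replicate 1 and -1.14 and -2.00 without replicate 2, and SCN2A at BMP2 day 10, at -0.12 without replicate 2 and 3.84 without replicate 1. The cause was not tested.

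Same-numbered libraries correlated between -0.308 and 0.126 in their deviations from group means. With 2 libraries per group each deviation rests on 1 difference, so these values cannot settle whether the numbers mark a shared culture or day. With a replicate block the 11 counts were 12, 23 and 48 at RA days 5, 10 and 21, 26, 28 and 37 at BMP2 days 5, 10 and 21, 19, 14 and 13 between the agents, 9 within RA and 10 within BMP2, each within 1.5 times of the fit without it. On simulated counts for RA day 21 against untreated cells the test recovered 10% of 2-fold changes. Few genes were changed there, all with a mean over 1 CPM.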
